A study of Homo sapiens with 40 samples.

Results

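Invasive Kyse30 cells, photoconverted and sorted out of spheroids kept in epidermal growth factor (EGF), were compared with Kyse30 spheroids kept in EGF together with AZD6244, an inhibitor of the kinases MEK1 and MEK2, each group being 4 libraries. The 8 libraries were chosen by their cell line, treatment and cell selection and are 8 of the 40 in the series. Kyse30 is an established line from an oesophageal squamous cell carcinoma. The invasive group received 9 nM EGF for 72 h. The MEK inhibitor group received 9 nM EGF with 100 nM AZD6244 for 72 h and is labelled unselected. Both groups were wildtype cells with Dendra2, a fluorescent protein turned from green to red by light, and both grew as spheroids in type I collagen in serum-free medium. The labels do not say whether the Dendra2 line is 1 clone. The invasive cells differ from the other group both in the absence of the drug and in having been picked by position, so the effects of MEK inhibition and of position cannot be told apart in this comparison alone. The cell selection label also reads the same for invasive and non-invasive cells, and the title is what separates them. Another 3 Kyse30 groups of 4 libraries were used to place the levels, namely non-invasive cells from the EGF spheroids, spheroids given EGF with 10 µg/mL of the EGF receptor antibody cetuximab, and serum-free spheroids with no EGF. The same pair of groups in FaDu, a hypopharyngeal carcinoma line, was the comparison from the rest of the series.

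EGF binds its receptor EGFR, a tyrosine kinase that passes the signal through RAS and RAF to MEK1 and MEK2, whose known substrates are the kinases ERK1 and ERK2. Active ERK raises transcription of its own brakes, the dual specificity phosphatases and Sprouty proteins, and of growth factors that activate EGFR again, and it stabilises transcription factors of the AP-1 family. In squamous carcinoma the pathway is known for driving cell division, migration and the production of laminins, integrins and matrix proteases at the tumour margin.

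The first invasive library was shallow, with 463124 counts, 13.4% of the median of the Kyse30 libraries, and 5281 genes detected. The other 3 invasive libraries held 2724211 to 3538545 counts and 12004 to 12254 detected genes, and the MEK inhibitor libraries held 3339892 to 4072449 counts and 12350 to 12368 detected genes. Of 3287 genes at or over 50 CPM in each of the other 3 invasive libraries, 539 had 0 counts in the shallow one. Mitochondrially encoded transcripts took 26.6% of its counts, against 11.7% to 13.1% in the other invasive and 9.39% to 13.4% in the MEK inhibitor libraries, and the nuclear RNA MALAT1 took 8.18%, against 1.93% to 3.26% in the other invasive and 0.81% to 1.20% in the MEK inhibitor libraries. Tests of invasive against MEK inhibitor libraries are therefore given with and without that library, and invasive values follow replicates 1 to 4, so that the shallow library comes first. Fold changes are log2 values, invasive over MEK inhibitor, with ± giving the standard error (SE), and gene coordinates are those of RefSeq on GRCh38.p14. Levels are CPM, the counts of a gene scaled to a common library size. Genes were called at an adjusted p under 0.05 in edgeR's quasi-likelihood test. Wherever a gene has a pair of log2 fold changes and a pair of adjusted p-values, the first of each is with all libraries and the second is without the shallow one. All 10 squamous epithelial markers listed had a row in the table. Their summed level was 7554 CPM in the shallow library, 11080 to 13740 CPM in the other invasive libraries and 4756 to 5518 CPM in the MEK inhibitor libraries, most of it from KRT8 and KRT18, keratins of simple epithelia. EPCAM stood at 391, 264, 270.2 and 312 CPM in the invasive libraries and 327, 271, 253 and 221 CPM in the MEK inhibitor libraries. The basal keratins KRT5 and KRT14 were near 0, with at most 1.04 CPM in any of the 8 libraries but the shallow one, where KRT5 had 15.03 CPM. TP63, the squamous lineage transcription factor, stood at 0, 17.4, 17.1 and 23.4 CPM in the invasive and 10.2, 13.9, 5.45 and 11.7 CPM in the MEK inhibitor libraries. Of 28 listed markers of fibroblasts, leukocytes and endothelium, 3 had a row, namely COL1A1, CD68 and CDH5, and the others were not analysed here. COL1A1 reached at most 7.46 CPM in the invasive and 10.1 CPM in the MEK inhibitor libraries. CD68 had 53.7 CPM in the shallow library, 3.73 to 7.45 CPM in the other 3 invasive libraries and 0.498 to 3.12 CPM in the MEK inhibitor libraries, and was called only with the shallow library. CD68 was higher in every invasive library, with log2 fold changes of 2.79 ± 0.83 and 1.43 ± 0.70 (adjusted p = 0.024 and 0.15). The CD68 call was lost on leaving out any one of invasive replicate 1 and MEK inhibitor replicates 1, 2 and 4 (adjusted p up to 0.15). CDH5 was lower, at 0, 2.80, 0 and 0.677 CPM in invasive libraries, against 10.4, 10.2, 13 and 8.71 CPM in MEK inhibitor libraries. CDH5 was lower in every deeper invasive library and at 0 in the shallow one, with log2 fold changes of -3.16 ± 0.60 and -3.05 ± 0.55 (adjusted p = 0.0006 and 0.00015). Whether other cell types had a part in the results was not tested, and in bulk libraries fewer cells of a type and less RNA per cell cannot be told apart.

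With all 20 Kyse30 libraries in 1 fit, 764 of 11976 genes tested (6.38%) were higher and 947 (7.91%) were lower in invasive cells than in MEK inhibitor spheroids at an adjusted p under 0.05 in edgeR's quasi-likelihood test, together 14.3%. Without the shallow library, 1425 of 12072 genes (11.8%) were higher and 1394 (11.5%) lower, together 23.4%. The counts of called list members given below are to be read against these shares of all genes. Both fits called 660 genes higher and 935 lower and none in opposite directions. Both fits gave at least a 2-fold change in 471 of the higher and 855 of the lower genes. The 4 invasive libraries lay all above the 4 MEK inhibitor libraries in 6.69% of genes and all below them in 16%. Without the shallow library these shares were 20.1% and 18.9%. A further 116 genes were called only with the shallow library included. Of the 947 lower genes, 686 had 0 counts in the shallow library, and 679 of these were also called lower without it. Among all 12655 genes listed, 7374 had 0 counts in that library. A 0 there therefore adds little for a gene called lower, whose direction then rests on the deeper invasive libraries. The median log2 fold change of all genes was -0.14 with all libraries and -0.03 without the shallow one. The balance of directions depended on the scaling while the shallow library was in the fit. Higher genes made up 44.7% of the calls with TMM factors, 33.3% (644 higher, 1292 lower) with relative log expression size factors, which moved the median of all genes by -0.12, and 31.8% (903 higher, 1934 lower) with DESeq2. Without the shallow library the share was 50.5% with edgeR and 49.5% (1563 higher, 1593 lower) with DESeq2. Fitting the 8 libraries alone gave 284 higher and 315 lower genes. No label says that replicates came from separate cultures, so the p-values measure the spread between these libraries, which may be technical.

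Genes that report ERK activity were mostly higher in invasive cells. Of 25 tested members, 14 were higher and 2 lower with all libraries, and 15 and 2 without the shallow one, against the 6.38% and 7.91% of all genes with all libraries and the 11.8% and 11.5% without the shallow one. Their median log2 fold change was 1.35 with all libraries and 1.61 without the shallow one. DUSP6 (chr12:89347235-89352501), the phosphatase that switches off ERK, had 38.6, 105, 145 and 194 CPM in invasive libraries, against 24.9, 23.8, 12.5 and 30.4 CPM in MEK inhibitor libraries. DUSP6 was higher in every invasive library, with log2 fold changes of 2.43 ± 0.41 and 2.69 ± 0.37 (adjusted p = 0.00017 and 2.9e-05). SPRY4, a Sprouty inhibitor of receptor tyrosine kinase signalling, had 0, 16.5, 27.7 and 17.3 CPM in invasive libraries, against 1.77, 1.34, 1.04 and 0.498 CPM in MEK inhibitor libraries. SPRY4 was above every MEK inhibitor library in the 3 deeper invasive libraries and not in the shallow one, with log2 fold changes of 3.80 ± 0.60 and 4.08 ± 0.48 (adjusted p = 9.5e-05 and 2.5e-07). The shallow library held no read of it. PHLDA1, an early response gene, had 423, 478, 700.3 and 907 CPM in invasive libraries, against 195, 239, 152 and 159 CPM in MEK inhibitor libraries. PHLDA1 was higher in every invasive library, with log2 fold changes of 1.75 ± 0.26 and 1.90 ± 0.24 (adjusted p = 4e-05 and 1.7e-06). HMGA2, a chromatin protein of embryonic and tumour cells, had 112, 513, 816 and 599.8 CPM in invasive libraries, against 30.9, 58.4, 48 and 153 CPM in MEK inhibitor libraries. HMGA2 was above every MEK inhibitor library in the 3 deeper invasive libraries and not in the shallow one, with log2 fold changes of 2.82 ± 0.49 and 3.14 ± 0.50 (adjusted p = 0.00024 and 0.00031). MEK inhibitor replicate 4 was the highest of its group.

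The ETS factors ETV4 and ETV5, which are transcription factors known as ERK targets, gave 1 call between them. ETV5 was higher, at 49.4, 30.1, 31.7 and 18.6 CPM in invasive libraries, against 13.7, 17.4, 6.23 and 11.4 CPM in MEK inhibitor libraries. ETV5 was higher in every invasive library, with log2 fold changes of 1.35 ± 0.40 and 1.13 ± 0.35 (adjusted p = 0.025 and 0.018). Its call was lost on leaving out any one of invasive replicate 3 and MEK inhibitor replicates 1, 3 and 4 (adjusted p up to 0.12). ETV4 was not called, at 0, 22.1, 22.8 and 21.7 CPM in invasive libraries, against 17.2, 21.4, 10.1 and 14.9 CPM in MEK inhibitor libraries. ETV4 was above every MEK inhibitor library in the 3 deeper invasive libraries and not in the shallow one, with log2 fold changes of 0.23 ± 0.39 and 0.48 ± 0.25 (adjusted p = 0.74 and 0.19). The 3 deeper libraries exceeded the MEK inhibitor range by little, and the shallow one was at 0. Both members called lower were lower in both fits. SPRY1, a Sprouty family member, had 0, 8.39, 4.07 and 4.06 CPM in invasive libraries, against 14.8, 28.4, 44.6 and 62 CPM in MEK inhibitor libraries. SPRY1 was lower in every deeper invasive library and at 0 in the shallow one, with log2 fold changes of -2.88 ± 0.45 and -2.73 ± 0.39 (adjusted p = 7.5e-05 and 7.1e-06). TFPI2, an inhibitor of serine proteases, had 0, 23, 6.10 and 6.77 CPM in invasive libraries, against 109.5, 65.3, 66.2 and 21.7 CPM in MEK inhibitor libraries. TFPI2 overlapped between the groups, with log2 fold changes of -2.63 ± 0.57 and -2.43 ± 0.62 (adjusted p = 0.0023 and 0.0088). Only invasive replicate 2 and MEK inhibitor replicate 4 crossed. The phosphatases DUSP4 and DUSP5, which also act on ERK, had lower values in MEK inhibitor replicates 3 and 4 than in replicates 1 and 2. DUSP5 stood at 174, 152, 208 and 263 CPM in invasive libraries, against 96.9, 106, 43.1 and 27.1 CPM in MEK inhibitor libraries. DUSP5 was higher in every invasive library, with log2 fold changes of 1.55 ± 0.31 and 1.61 ± 0.31 (adjusted p = 0.00095 and 0.0008). DUSP4 stood at 259.8, 444, 479 and 651 CPM in invasive libraries, against 254, 264, 133 and 137 CPM in MEK inhibitor libraries. DUSP4 was above every MEK inhibitor library in the 3 deeper invasive libraries and not in the shallow one, with log2 fold changes of 1.23 ± 0.27 and 1.41 ± 0.24 (adjusted p = 0.0025 and 8.5e-05). These 2 and other list members outside the naming rule were named after their values were seen. The cell cycle genes MYC and CCND1 were higher in both fits. MYC, a growth regulator, had 21.5, 36.4, 36.2 and 37.6 CPM in invasive libraries, against 14.1, 25.4, 6.75 and 7.97 CPM in MEK inhibitor libraries. MYC was above every MEK inhibitor library in the 3 deeper invasive libraries and not in the shallow one, with log2 fold changes of 1.31 ± 0.40 and 1.44 ± 0.35 (adjusted p = 0.027 and 0.0033). CCND1, the cyclin that carries growth factor signals to the cell cycle, had 754, 432, 567 and 496 CPM in invasive libraries, against 292, 291, 232 and 240.2 CPM in MEK inhibitor libraries. CCND1 was higher in every invasive library, with log2 fold changes of 1.09 ± 0.18 and 0.92 ± 0.16 (adjusted p = 0.00019 and 7.6e-05). EPHA2, LIF, ETV1, EPHA4, VGF and the SPRED genes were not called with all libraries, and LIF was called without the shallow one (log2 fold change 2.64 ± 0.78, adjusted p = 0.015). The MYC call was lost on leaving out any one of invasive replicates 2, 3 and 4 and MEK inhibitor replicates 1, 3 and 4 (adjusted p up to 0.12).

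Promoters of 3 called members of the ERK and protease lists hold the AP-1 motif TGAGTCA and are shown because FOS and JUN family proteins, which bind that motif, are regulated by ERK. Each window runs from 250 bases before to 50 after the annotated gene start in RefSeq (GRCh38.p14), is written 5′ to 3′ on the gene's strand, and has the motif in capitals. It was searched as TGAGTCA or its reverse complement TGACTCA. IL11 lies on the minus strand (chr19:55370414-55370713) with the motif at -96 from the gene start, SPHK1 on the plus strand (chr17:76382954-76383253) with it at -6, and PLAUR on the minus strand (chr19:43670120-43670419) with it at -186.
IL11: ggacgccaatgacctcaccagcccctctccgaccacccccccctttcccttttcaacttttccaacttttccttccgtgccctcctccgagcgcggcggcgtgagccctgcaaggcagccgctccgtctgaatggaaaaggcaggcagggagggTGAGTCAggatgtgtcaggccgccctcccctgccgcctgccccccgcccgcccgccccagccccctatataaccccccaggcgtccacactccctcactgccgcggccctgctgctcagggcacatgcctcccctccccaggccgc
SPHK1: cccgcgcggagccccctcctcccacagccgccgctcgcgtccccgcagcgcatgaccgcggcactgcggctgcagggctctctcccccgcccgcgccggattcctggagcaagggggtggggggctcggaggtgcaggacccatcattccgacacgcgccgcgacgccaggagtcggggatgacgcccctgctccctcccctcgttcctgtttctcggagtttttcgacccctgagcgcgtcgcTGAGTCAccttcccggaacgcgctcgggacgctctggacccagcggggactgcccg
PLAUR: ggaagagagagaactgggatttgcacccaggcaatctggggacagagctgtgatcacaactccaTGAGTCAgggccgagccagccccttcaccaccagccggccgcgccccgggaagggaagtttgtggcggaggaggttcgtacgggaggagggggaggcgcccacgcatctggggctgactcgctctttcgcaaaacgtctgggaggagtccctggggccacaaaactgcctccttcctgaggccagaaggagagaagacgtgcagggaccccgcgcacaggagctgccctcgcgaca

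IL11, a cytokine of the interleukin-6 family, had 0, 4.35, 19.1 and 3.73 CPM in invasive libraries, against 0.662, 0.803, 0.260 and 0.747 CPM in MEK inhibitor libraries. IL11 was above every MEK inhibitor library in the 3 deeper invasive libraries and not in the shallow one, with log2 fold changes of 3.52 ± 0.93 and 3.78 ± 0.91 (adjusted p = 0.012 and 0.0026). Its call was lost on leaving out any one of invasive replicate 3 and MEK inhibitor replicate 3 (adjusted p up to 0.12), and replicate 3 was the highest of the invasive libraries. SPHK1, which makes the lipid signal sphingosine 1-phosphate, had 17.2, 18.6, 65.5 and 19.6 CPM in invasive libraries, against 8.61, 9.37, 9.35 and 8.71 CPM in MEK inhibitor libraries. SPHK1 was higher in every invasive library, with log2 fold changes of 1.78 ± 0.55 and 1.93 ± 0.52 (adjusted p = 0.031 and 0.0076). Invasive replicate 3 stood far above the other 3. The SPHK1 call was lost on leaving out any one of invasive replicate 3 and MEK inhibitor replicates 1, 2, 3 and 4 (adjusted p up to 0.24). PLAUR, the receptor for the protease urokinase, had 258, 356, 389 and 412 CPM in invasive libraries, against 199, 172, 68.5 and 43.1 CPM in MEK inhibitor libraries. PLAUR was higher in every invasive library, with log2 fold changes of 1.56 ± 0.44 and 1.67 ± 0.55 (adjusted p = 0.019 and 0.04). MEK inhibitor replicates 3 and 4 were lower than replicates 1 and 2, and no MEK inhibitor library reached the invasive range. The PLAUR call was lost on leaving out any one of MEK inhibitor replicates 3 and 4 (adjusted p up to 0.092). Of the promoters in the table, 4.92% (1344 of 27305) hold the motif on either strand, as do 3.10% (290 of 9347) of those of genes tested here, 7.91% (39 of 493) of those of genes called higher in both fits and 4.37% (32 of 732) of those called lower in both. In the lists themselves, 2 of 8 called ERK genes and 1 of 4 called protease genes with a promoter in the table hold it. These are matches of letters in a window and say nothing of binding.

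Of the 5 EGFR ligands tested, 4 were higher in invasive cells, while the receptor itself was not called. Of 11 tested members of the list of the EGFR family, its ligands and their feedback, 5 were higher and 1 lower with all libraries, and 5 and 2 without the shallow one. HBEGF (chr5:140332843-140346603), a membrane-anchored ligand, had 319.9, 199, 287 and 176 CPM in invasive libraries, against 14.6, 11.8, 5.19 and 7.47 CPM in MEK inhibitor libraries. HBEGF was higher in every invasive library, with log2 fold changes of 4.63 ± 0.39 and 4.49 ± 0.35 (adjusted p = 1.2e-08 and 2.9e-09). Of the members tested it changed most, and the lowest invasive library, at 176 CPM, stood far above the highest MEK inhibitor library, at 14.6 CPM. AREG, the ligand amphiregulin, had 1054, 2267, 3017 and 3194 CPM in invasive libraries, against 671, 946, 309.9 and 352 CPM in MEK inhibitor libraries. AREG was higher in every invasive library, with log2 fold changes of 2.07 ± 0.39 and 2.31 ± 0.44 (adjusted p = 0.00062 and 0.0014). EREG, the ligand epiregulin, had 155, 457, 406 and 405 CPM in invasive libraries, against 169, 245, 64.4 and 69.5 CPM in MEK inhibitor libraries. EREG was above every MEK inhibitor library in the 3 deeper invasive libraries and not in the shallow one, with log2 fold changes of 1.39 ± 0.45 and 1.63 ± 0.53 (adjusted p = 0.038 and 0.039). TGFA, a further ligand, had 60.1, 114, 136 and 128 CPM in invasive libraries, against 72.9, 66.2, 54 and 29.9 CPM in MEK inhibitor libraries. TGFA was above every MEK inhibitor library in the 3 deeper invasive libraries and not in the shallow one, with log2 fold changes of 1.0 ± 0.28 and 1.17 ± 0.22 (adjusted p = 0.018 and 0.00023). The EREG call was lost on leaving out any one of invasive replicates 2, 3 and 4 and MEK inhibitor replicates 1, 3 and 4 (adjusted p up to 0.15). The TGFA call was lost on leaving out any one of invasive replicate 3 and MEK inhibitor replicates 3 and 4 (adjusted p up to 0.077). BTC, the ligand betacellulin, was the one member called lower in both fits, at 0, 3.11, 4.07 and 7.79 CPM in invasive libraries, against 14.3, 11.5, 28.8 and 14.2 CPM in MEK inhibitor libraries. BTC was lower in every deeper invasive library and at 0 in the shallow one, with log2 fold changes of -1.95 ± 0.58 and -1.78 ± 0.54 (adjusted p = 0.023 and 0.015). The BTC call was lost on leaving out any one of invasive replicates 2 and 3 and MEK inhibitor replicate 3 (adjusted p up to 0.1). ERRFI1, an inhibitor of EGFR made in response to its signal, had 25.8, 215, 193 and 244 CPM in invasive libraries, against 46.4, 61.9, 24.4 and 32.1 CPM in MEK inhibitor libraries. ERRFI1 was above every MEK inhibitor library in the 3 deeper invasive libraries and not in the shallow one, with log2 fold changes of 2.08 ± 0.41 and 2.40 ± 0.27 (adjusted p = 0.001 and 3.8e-07). EGFR had 1638, 2459, 2402 and 2269 CPM in invasive libraries, against 2209, 2323, 3082 and 1833 CPM in MEK inhibitor libraries. EGFR overlapped between the groups, with log2 fold changes of -0.11 ± 0.18 and 0.01 ± 0.17 (adjusted p = 0.75 and 0.98). ERBB2, a partner receptor, was called lower only without the shallow library (log2 fold change -0.97 ± 0.22, adjusted p = 0.0016). The shallow library had its highest level of the 8, 98.8 CPM.

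Of 16 tested members of the AP-1 and immediate early list, 2 were higher and 1 lower with all libraries, and 2 and 0 without the shallow one. With all libraries this is 12.5% and 6.25%, against 6.38% and 7.91% of all genes. Without the shallow one 11.8% and 11.5% of all genes were called. In a list of this size such shares differ by few genes. FOSL1, the AP-1 subunit FRA-1 that ERK stabilises, had 198, 103, 182 and 97.2 CPM in invasive libraries, against 24.7, 27.1, 12.5 and 2.99 CPM in MEK inhibitor libraries. FOSL1 was higher in every invasive library, with log2 fold changes of 3.09 ± 0.44 and 2.91 ± 0.43 (adjusted p = 2.9e-05 and 6.3e-05). KLF6, a zinc finger transcription factor, had 889, 1059, 990.5 and 1126 CPM in invasive libraries, against 399, 502, 239.8 and 229 CPM in MEK inhibitor libraries. KLF6 was higher in every invasive library, with log2 fold changes of 1.57 ± 0.24 and 1.63 ± 0.23 (adjusted p = 6.4e-05 and 1.1e-05). FOSL2 had 47.2, 84.5, 46 and 76.5 CPM in invasive libraries, against 214, 189, 96 and 59.2 CPM in MEK inhibitor libraries. FOSL2 overlapped between the groups, with log2 fold changes of -1.11 ± 0.34 and -1.01 ± 0.38 (adjusted p = 0.029 and 0.067). It was called lower only with the shallow library. Leaving out any one of invasive replicates 1 and 3 and MEK inhibitor replicates 1 and 2 (adjusted p up to 0.13) ended its call. FOS, JUN, JUNB and EGR1 were not called, with log2 fold changes of -0.30 ± 0.46 and 0.04 ± 0.42 for FOS, 0.52 ± 0.26 and 0.45 ± 0.28 for JUN, 0.19 ± 0.50 and 0.55 ± 0.40 for JUNB and -0.85 ± 0.42 and -0.72 ± 0.54 for EGR1.

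**Figure D1:**
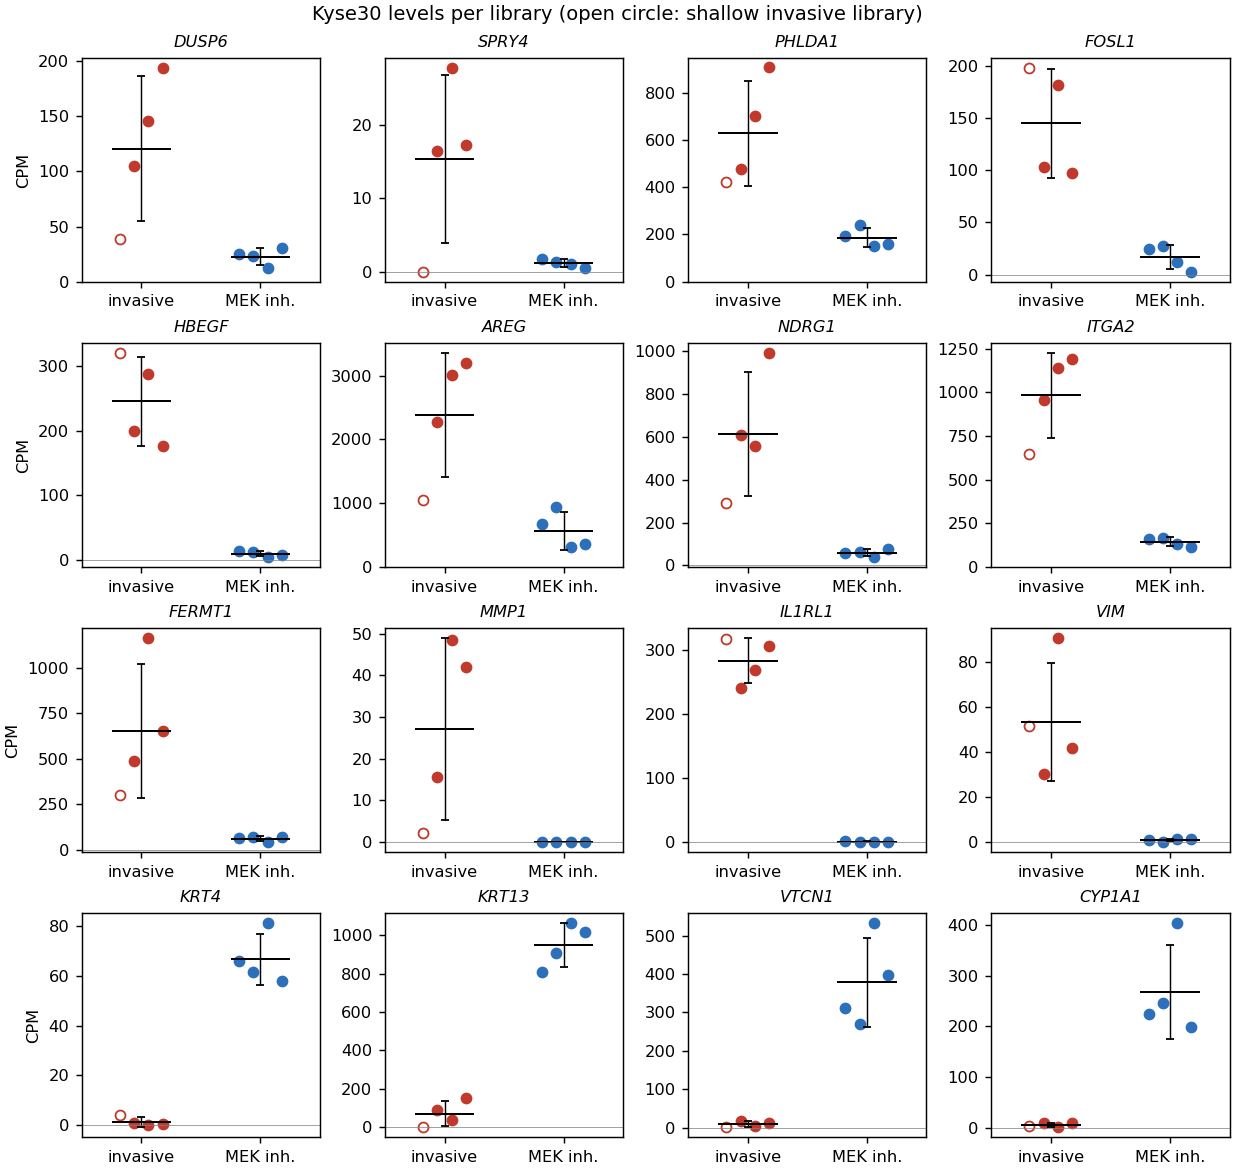
Level of 16 genes in each of the 8 libraries, in CPM, with invasive libraries in red, MEK inhibitor libraries in blue and the shallow invasive library as an open circle; bars give mean and SD of 4 libraries. HBEGF, NDRG1, ITGA2, FERMT1 and IL1RL1 were higher in every invasive library and KRT4, VTCN1 and CYP1A1 lower in every one. SPRY4 and KRT13 have their shallow value at 0, and KRT13 was lower in the deeper invasive libraries.

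Genes of the laminin-332 adhesion system, by which epithelial cells hold to basement membrane, had the largest share of members called higher of any list with 8 or more tested members. Of 18 tested members, 12 were higher and 0 lower with all libraries, and 14 and 1 without the shallow one, and the median log2 fold change was 1.46 with all libraries and 1.52 without the shallow one. LAMA3 and LAMB3, which encode chains of laminin-332, both rose. LAMA3 had 15, 141, 308 and 197 CPM in invasive libraries, against 30.2, 37.8, 23.9 and 23.6 CPM in MEK inhibitor libraries. LAMA3 was above every MEK inhibitor library in the 3 deeper invasive libraries and not in the shallow one, with log2 fold changes of 2.55 ± 0.46 and 2.89 ± 0.27 (adjusted p = 0.00036 and 9.3e-09). LAMB3 had 457, 511, 768 and 599.8 CPM in invasive libraries, against 204, 142, 142 and 121 CPM in MEK inhibitor libraries. LAMB3 was higher in every invasive library, with log2 fold changes of 1.94 ± 0.25 and 2.04 ± 0.23 (adjusted p = 5.6e-06 and 2.2e-07). ITGA2 (chr5:52989352-53094779), the collagen-binding integrin α2, had 648, 954, 1136 and 1188 CPM in invasive libraries, against 162, 166, 132 and 114 CPM in MEK inhibitor libraries. ITGA2 was higher in every invasive library, with log2 fold changes of 2.78 ± 0.22 and 2.93 ± 0.19 (adjusted p = 5.5e-09 and 3.9e-12). The laminin receptor α6β4 was higher in both chains. ITGA6 had 472, 979.9, 1324 and 1316 CPM in invasive libraries, against 206, 276, 145 and 223 CPM in MEK inhibitor libraries. ITGA6 was higher in every invasive library, with log2 fold changes of 2.27 ± 0.27 and 2.51 ± 0.21 (adjusted p = 2.4e-06 and 6.2e-10). ITGB4 had 530.4, 1361, 1472 and 1743 CPM in invasive libraries, against 266, 314, 238 and 264 CPM in MEK inhibitor libraries. ITGB4 was higher in every invasive library, with log2 fold changes of 2.24 ± 0.29 and 2.50 ± 0.23 (adjusted p = 8.5e-06 and 8e-09). FERMT1 (chr20:6074845-6123030), kindlin-1, which activates integrins in epithelia, had 301, 490.1, 1164 and 654 CPM in invasive libraries, against 63.2, 67.2, 43.4 and 68.7 CPM in MEK inhibitor libraries. FERMT1 was higher in every invasive library, with log2 fold changes of 3.43 ± 0.29 and 3.66 ± 0.22 (adjusted p = 1.5e-08 and 2.1e-12). Of the remaining members, ITGA3, ITGA5, COL17A1, DST and PLEC were also higher in both fits, with log2 fold changes of 1.46 ± 0.28 and 1.66 ± 0.23 for ITGA3, 2.15 ± 0.40 and 2.28 ± 0.37 for ITGA5, 1.09 ± 0.36 and 1.39 ± 0.33 for COL17A1, 1.07 ± 0.28 and 1.27 ± 0.26 for DST and 1.46 ± 0.23 and 1.30 ± 0.20 for PLEC. The COL17A1 call was lost on leaving out any one of invasive replicates 2, 3 and 4 and MEK inhibitor replicates 1, 2 and 3 (adjusted p up to 0.19). The DST call was lost on leaving out any one of invasive replicate 4 and MEK inhibitor replicate 3 (adjusted p up to 0.066). ITGB1, the shared β1 chain, and ITGB5 were called higher only without the shallow library (log2 fold change 1.03 ± 0.18, adjusted p = 7.1e-05 for ITGB1), and ITGAV only then lower (-0.50 ± 0.18, adjusted p = 0.041). ITGB6, FERMT2 and CD151 were not called in either fit.

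Of 14 tested members of the list of matrix proteases and their inhibitors, 6 were higher and 0 lower with all libraries. Without the shallow one 8 and 1 of 15 were. The list does not hold the proteoglycan-cleaving protease ADAMTS5 or the serine protease inhibitor TFPI2, which were called lower in both fits. MMP1 (chr11:102789919-102798160), the interstitial collagenase that cleaves type I collagen, had 2.15, 15.5, 48.4 and 42 CPM in invasive libraries, against 0, 0, 0 and 0 CPM in MEK inhibitor libraries. No read of it was counted in the MEK inhibitor group, against 294 in the invasive group, which is at least 145-fold higher when the MEK inhibitor group is set to a floor of 3 counts. The call held in both fits (adjusted p = 0.00011 and 2.1e-05). MMP10, stromelysin-2, had 0, 14, 19.5 and 24.4 CPM in invasive libraries, against 0, 0, 0 and 0.498 CPM in MEK inhibitor libraries. With 165 counts in the invasive group and 2 in the MEK inhibitor group, the ratio was 146, with an exact 95% counting interval of 39.9 to 1220 (adjusted p = 8.2e-05 and 1.3e-06 in the 2 fits). SERPINB2, an inhibitor of urokinase, had 68 counts in the invasive and 3 in the MEK inhibitor group, a ratio of 40.2 (13.2 to 200), with a call in both fits (adjusted p = 0.015 and 0.0043) that was lost on leaving out any one of MEK inhibitor replicates 1, 3 and 4 (adjusted p up to 0.063). MMP28, a further metalloproteinase, had 0, 21.8, 21.2 and 19.6 CPM in invasive libraries, against 5.96, 5.36, 4.15 and 4.23 CPM in MEK inhibitor libraries. MMP28 was above every MEK inhibitor library in the 3 deeper invasive libraries and not in the shallow one, with log2 fold changes of 1.79 ± 0.50 and 2.07 ± 0.37 (adjusted p = 0.015 and 0.00013). The MMP28 call was lost on leaving out any one of MEK inhibitor replicates 3 and 4 (adjusted p up to 0.064). SERPINE2, another protease inhibitor, had 146, 81.7, 88.3 and 105 CPM in invasive libraries, against 34.2, 19.6, 28 and 10.9 CPM in MEK inhibitor libraries. SERPINE2 was higher in every invasive library, with log2 fold changes of 2.15 ± 0.34 and 1.98 ± 0.30 (adjusted p = 8.3e-05 and 2.3e-05). TIMP1, an inhibitor of metalloproteinases, was called higher only without the shallow library (log2 fold change 1.09 ± 0.19, adjusted p = 0.00011). MMP14, the membrane-bound collagenase, was not called, with log2 fold changes of -1.01 ± 0.43 and -0.76 ± 0.31 in the 2 fits, nor were MMP2, PLAU and PLAT. Intervals and floors cover counting error only, since no molecular identifiers are named for these libraries.

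Of 27 tested members of the actin and motility list, 9 were higher and 0 lower with all libraries, and 14 and 0 without the shallow one. FLNA, a filamin, which cross-links actin and ties it to integrins, had 743, 408, 446 and 408 CPM in invasive libraries, against 82.2, 100.7, 83.1 and 107 CPM in MEK inhibitor libraries. FLNA was higher in every invasive library, with log2 fold changes of 2.42 ± 0.26 and 2.17 ± 0.22 (adjusted p = 4.7e-07 and 1.7e-08). The shallow library was its highest. PDLIM7, a cytoskeletal scaffold, had 100.9, 62.5, 59.8 and 52.8 CPM in invasive libraries, against 12.8, 10.4, 6.49 and 10.9 CPM in MEK inhibitor libraries. PDLIM7 was higher in every invasive library, with log2 fold changes of 2.72 ± 0.40 and 2.51 ± 0.33 (adjusted p = 4.3e-05 and 1.5e-06). FSCN1, the filopodial bundling protein fascin, had 157, 214, 312 and 277 CPM in invasive libraries, against 67.1, 77.7, 54 and 56.8 CPM in MEK inhibitor libraries. FSCN1 was higher in every invasive library, with log2 fold changes of 1.92 ± 0.24 and 2.06 ± 0.21 (adjusted p = 6.4e-06 and 1.6e-08). ACTN1, ACTN4, VASP, DIAPH1 and CAPG were called only without the shallow library, and TAGLN, VCL and ENAH in neither fit.

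Genes of the partial mesenchymal state seen at carcinoma margins included some of the largest changes. Of 18 tested members, 9 were higher and 1 lower with all libraries, and 11 and 2 without the shallow one (of 19 tested there). VIM, the intermediate filament of mesenchymal cells, had 51.5, 30.1, 90.3 and 41.7 CPM in invasive libraries, against 1.1, 0.268, 1.30 and 1.49 CPM in MEK inhibitor libraries. VIM was higher in every invasive library, with log2 fold changes of 5.62 ± 0.57 and 5.63 ± 0.51 (adjusted p = 2.2e-07 and 2.9e-09). INHBA, the activin A subunit, had 81.6, 50.04, 218 and 109.7 CPM in invasive libraries, against 1.55, 1.07, 3.89 and 4.98 CPM in MEK inhibitor libraries. INHBA was higher in every invasive library, with log2 fold changes of 5.32 ± 0.74 and 5.44 ± 0.84 (adjusted p = 2.1e-05 and 0.00023). CD44, a hyaluronan receptor, had 1151, 706, 811 and 726 CPM in invasive libraries, against 114, 133, 70.6 and 151 CPM in MEK inhibitor libraries. CD44 was higher in every invasive library, with log2 fold changes of 2.85 ± 0.22 and 2.67 ± 0.19 (adjusted p = 5.2e-09 and 4.1e-11). S100A2, a calcium-binding protein of squamous epithelia, had 2.15, 336, 517 and 494 CPM in invasive libraries, against 6.18, 8.03, 8.05 and 12.7 CPM in MEK inhibitor libraries. S100A2 was above every MEK inhibitor library in the 3 deeper invasive libraries and not in the shallow one, with log2 fold changes of 5.29 ± 0.70 and 5.68 ± 0.44 (adjusted p = 9.6e-06 and 6.6e-08). The shallow library held 1 read of it, below the MEK inhibitor range, while the other 3 were far above. AXL, a receptor tyrosine kinase, had 0, 92.9, 174 and 54.9 CPM in invasive libraries, against 9.27, 11, 5.71 and 9.71 CPM in MEK inhibitor libraries. AXL was above every MEK inhibitor library in the 3 deeper invasive libraries and not in the shallow one, with log2 fold changes of 3.23 ± 0.58 and 3.58 ± 0.35 (adjusted p = 0.00033 and 5.7e-08). SNAI2, a repressor of epithelial genes, had 2.15, 44.1, 73.7 and 33.2 CPM in invasive libraries, against 15, 21.4, 7.53 and 6.22 CPM in MEK inhibitor libraries. SNAI2 was above every MEK inhibitor library in the 3 deeper invasive libraries and not in the shallow one, with log2 fold changes of 1.69 ± 0.51 and 2.0 ± 0.38 (adjusted p = 0.027 and 0.00027). The SNAI2 call was lost on leaving out any one of invasive replicates 2 and 3 and MEK inhibitor replicates 1, 3 and 4 (adjusted p up to 0.14). FN1, fibronectin, was lower, at 0, 2.49, 2.85 and 4.40 CPM in invasive libraries, against 31.1, 17.7, 32.5 and 9.96 CPM in MEK inhibitor libraries. FN1 was lower in every deeper invasive library and at 0 in the shallow one, with log2 fold changes of -2.94 ± 0.63 and -2.80 ± 0.61 (adjusted p = 0.0021 and 0.0013). CDH2, ZEB1 and TWIST1 were not called in either fit. VIM averaged 53.4 CPM in invasive and 39.7 CPM in non-invasive cells. Without the shallow library it was not called between them (log2 fold change 0.44 ± 0.38, adjusted p = 0.61). In that fit 1 member of this list was higher and 0 lower in invasive than in non-invasive cells. Between non-invasive cells and MEK inhibitor spheroids 9 were higher and 2 lower in non-invasive cells.

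Of 16 tested members of the target genes of the co-activator YAP, 7 were higher and 0 lower with all libraries, and 7 and 0 without the shallow one. All genes had 6.38% higher with all libraries and 11.8% without the shallow one. NT5E, an ecto-nucleotidase, had 307, 479.5, 588 and 536 CPM in invasive libraries, against 69.8, 65.1, 52.2 and 40.6 CPM in MEK inhibitor libraries. NT5E was higher in every invasive library, with log2 fold changes of 3.07 ± 0.25 and 3.23 ± 0.21 (adjusted p = 7.3e-09 and 4.3e-12). F3, tissue factor, had 131, 569.7, 506 and 546 CPM in invasive libraries, against 96.5, 107, 104 and 60.5 CPM in MEK inhibitor libraries. F3 was higher in every invasive library, with log2 fold changes of 2.26 ± 0.35 and 2.55 ± 0.27 (adjusted p = 7.6e-05 and 2.6e-07). CCN1, an extracellular matrix protein, had 213, 310.5, 370.3 and 375 CPM in invasive libraries, against 131, 161, 36.6 and 47.5 CPM in MEK inhibitor libraries. CCN1 was higher in every invasive library, with log2 fold changes of 1.76 ± 0.49 and 1.90 ± 0.61 (adjusted p = 0.017 and 0.035). MEK inhibitor replicates 3 and 4 were below replicates 1 and 2. The CCN1 call was lost on leaving out any one of MEK inhibitor replicates 3 and 4 (adjusted p up to 0.083). CCN2, AJUBA and LATS2 were not called.

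After MMP1, the highest log2 fold change of the genes named was that of IL1RL1. IL1RL1 (chr2:102311563-102352356), the interleukin-33 receptor ST2, had 318, 241, 269 and 306 CPM in invasive libraries, against 0.662, 0.268, 0.260 and 0.249 CPM in MEK inhibitor libraries. IL1RL1 was higher in every invasive library, with log2 fold changes of 9.44 ± 0.50 and 9.39 ± 0.43 (adjusted p = 3.9e-12 and 1.8e-14). The MEK inhibitor group held 6 counts and the invasive group 2488. MYH16, a myosin heavy chain gene, had 0, 52.2, 82.6 and 49.1 CPM in invasive libraries, against 0.221, 1.07, 0 and 0.249 CPM in MEK inhibitor libraries. MYH16 was above every MEK inhibitor library in the 3 deeper invasive libraries and not in the shallow one, with log2 fold changes of 6.88 ± 0.87 and 7.23 ± 0.59 (adjusted p = 5.4e-06 and 4.6e-10). FOXC2, a forkhead transcription factor, had 0, 11.2, 37 and 25.4 CPM in invasive libraries, against 0.442, 0.803, 0 and 0 CPM in MEK inhibitor libraries. FOXC2 was above every MEK inhibitor library in the 3 deeper invasive libraries and not in the shallow one, with log2 fold changes of 5.82 ± 0.93 and 6.15 ± 0.79 (adjusted p = 9.5e-05 and 1.1e-06). ECM1, an extracellular matrix protein of stratified epithelia, had 0, 11.5, 22.8 and 22 CPM in invasive libraries, against 0.442, 0.268, 0 and 0 CPM in MEK inhibitor libraries. These were 158 counts in the invasive and 3 in the MEK inhibitor group, a ratio of 93.4 (31.4 to 458; adjusted p = 9.7e-05 and 2.6e-06). All 3 were at 0 in the shallow library and above every MEK inhibitor library in the other 3.

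Keratins moved in both directions. Of 8 tested members of the basal and stress keratin list, 4 were higher and 1 lower with all libraries, and 5 and 1 without the shallow one. KRT6A, a keratin of wounded and activated epithelium, had 45.1, 245, 382 and 494 CPM in invasive libraries, against 1.77, 6.70, 4.93 and 6.97 CPM in MEK inhibitor libraries. KRT6A was higher in every invasive library, with log2 fold changes of 5.86 ± 0.67 and 6.21 ± 0.62 (adjusted p = 1.4e-06 and 2.9e-06). Its near-identical copies KRT6B and KRT6C were not analysed here, and reads that fit more than 1 copy could have been split or dropped. KRT17, another stress keratin, had 25.8, 5.28, 15.1 and 15.6 CPM in invasive libraries, against 0, 0.268, 2.08 and 0.747 CPM in MEK inhibitor libraries. KRT17 was higher in every invasive library, with log2 fold changes of 4.21 ± 0.82 and 3.92 ± 0.83 (adjusted p = 0.00082 and 0.00082). KRT18 had 3519, 5851, 6714 and 7322 CPM in invasive libraries, against 2187, 2060, 2486 and 1727 CPM in MEK inhibitor libraries. KRT18 was higher in every invasive library, with log2 fold changes of 1.47 ± 0.20 and 1.65 ± 0.16 (adjusted p = 1.1e-05 and 8.4e-09). Its partner KRT8 had 2033, 3450, 3689 and 4155 CPM in invasive libraries, against 1390, 1383, 1376 and 1338 CPM in MEK inhibitor libraries. KRT8 was higher in every invasive library, with log2 fold changes of 1.28 ± 0.20 and 1.46 ± 0.17 (adjusted p = 9.5e-05 and 2.5e-07). KRT15, a keratin of basal cells, was lower, at 40.8, 30.5, 16.3 and 28.8 CPM in invasive libraries, against 59.2, 83.3, 90.3 and 122 CPM in MEK inhibitor libraries. KRT15 was lower in every invasive library, with log2 fold changes of -1.67 ± 0.31 and -1.80 ± 0.31 (adjusted p = 0.0006 and 0.00017). SOX2, the transcription factor of the squamous and oesophageal lineage, was also lower, at 0, 25.2, 17.9 and 29.8 CPM in invasive libraries, against 57.6, 81.7, 101.0 and 268 CPM in MEK inhibitor libraries. SOX2 was lower in every deeper invasive library and at 0 in the shallow one, with log2 fold changes of -2.62 ± 0.53 and -2.38 ± 0.58 (adjusted p = 0.0013 and 0.0073). MEK inhibitor replicate 4 was the highest of all 8.

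The keratins of the differentiated upper oesophageal epithelium were lower in invasive cells, within a differentiation list that otherwise split. Of 18 tested members, 3 were higher and 4 lower with all libraries, and 5 and 4 without the shallow one. All genes had 6.38% higher and 7.91% lower with all libraries, and 11.8% and 11.5% without the shallow one. KRT13 (chr17:41500981-41505612) had 0, 88.9, 37.4 and 149 CPM in invasive libraries, against 807, 910, 1063 and 1016 CPM in MEK inhibitor libraries. KRT13 was lower in every deeper invasive library and at 0 in the shallow one, with log2 fold changes of -3.69 ± 0.56 and -3.37 ± 0.54 (adjusted p = 7.5e-05 and 0.00033). Its partner KRT4 had 4.29, 0.932, 0 and 0.339 CPM in invasive libraries, against 66, 61.3, 81 and 57.8 CPM in MEK inhibitor libraries. KRT4 was lower in every invasive library, with log2 fold changes of -6.54 ± 0.58 and -7.07 ± 0.57 (adjusted p = 2.7e-08 and 4.2e-09). KRT80 and the cornified envelope precursor SPRR3 were lower as well. SPRR3 had 0, 240.5, 96 and 232 CPM in invasive libraries, against 971, 691, 1303 and 426 CPM in MEK inhibitor libraries. SPRR3 was lower in every deeper invasive library and at 0 in the shallow one, with log2 fold changes of -2.52 ± 0.55 and -2.16 ± 0.43 (adjusted p = 0.0029 and 0.0016). KRT80 had 0, 109, 58.2 and 99.6 CPM in invasive libraries, against 319, 272, 215 and 134 CPM in MEK inhibitor libraries. KRT80 was lower in every deeper invasive library and at 0 in the shallow one, with log2 fold changes of -1.72 ± 0.44 and -1.40 ± 0.28 (adjusted p = 0.009 and 0.00076). SPRR1B, a further envelope precursor, went the other way, at 169.6, 489, 578 and 602 CPM in invasive libraries, against 28.9, 31.9, 43.1 and 13.2 CPM in MEK inhibitor libraries. SPRR1B was higher in every invasive library, with log2 fold changes of 3.98 ± 0.40 and 4.25 ± 0.36 (adjusted p = 1.5e-07 and 7.3e-08). ECM1, above, was higher too, as was CSTB, the protease inhibitor cystatin B, at 120.2, 552, 532 and 831 CPM in invasive libraries, against 171, 150.2, 91.6 and 101.3 CPM in MEK inhibitor libraries. CSTB was above every MEK inhibitor library in the 3 deeper invasive libraries and not in the shallow one, with log2 fold changes of 2.0 ± 0.39 and 2.31 ± 0.31 (adjusted p = 0.00078 and 2.1e-05). IVL, KRT10 and S100A9 were not called. Of 25 tested members of the list of epithelial junctions, 5 were higher and 1 lower with all libraries, and 7 and 2 without the shallow one. With all libraries this is 20% and 4%, to be set against the 6.38% and 7.91% of all genes. With all libraries the split was 4 higher and 4 lower under relative log expression factors and 5 and 4 with DESeq2. E-cadherin (CDH1), EPCAM, the claudins and ZO-1 (TJP1) were not called by edgeR. DSC2, a desmosomal cadherin, had 210.4, 186, 169.7 and 279 CPM in invasive libraries, against 87.9, 76.1, 76 and 67.5 CPM in MEK inhibitor libraries. DSC2 was higher in every invasive library, with log2 fold changes of 1.46 ± 0.24 and 1.46 ± 0.21 (adjusted p = 0.00013 and 6.4e-06). The desmosomal plaque genes JUP and PKP3 and the desmoplakin gene DSP were also called higher, with log2 fold changes of 0.79 ± 0.22 and 0.81 ± 0.21 for JUP, 0.83 ± 0.22 and 0.65 ± 0.18 for PKP3 and 0.74 ± 0.20 and 0.68 ± 0.19 for DSP. The call of JUP was lost on leaving out any one of MEK inhibitor replicates 2 and 3 (adjusted p up to 0.086), that of PKP3 on leaving out MEK inhibitor replicate 2 (adjusted p up to 0.052) and that of DSP on leaving out MEK inhibitor replicate 3 (adjusted p up to 0.075). GRHL2, an epithelial transcription factor, was lower (log2 fold change -0.91 ± 0.29 and -0.77 ± 0.25, adjusted p = 0.038 and 0.026), and its call was lost on leaving out any one of invasive replicate 3 and MEK inhibitor replicates 3 and 4 (adjusted p up to 0.14).

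Most tested members of the list of membrane mucins and VTCN1, which also holds LCN2 and CEACAM1, were lower. Of 9 tested members, 1 was higher and 6 lower with all libraries, and 1 and 6 without the shallow one, and the median log2 fold change was -2.78 with all libraries and -2.85 without the shallow one. VTCN1 (chr1:117143587-117210927), the T cell inhibitory ligand B7-H4, had 2.15, 17.7, 4.88 and 12.9 CPM in invasive libraries, against 312, 271, 532 and 398 CPM in MEK inhibitor libraries. VTCN1 was lower in every invasive library, with log2 fold changes of -5.12 ± 0.37 and -4.96 ± 0.34 (adjusted p = 1.4e-09 and 1.6e-10). MUC16, the tumour marker CA-125, had 58, 65.3, 18.3 and 47.4 CPM in invasive libraries, against 393, 275, 380.3 and 226 CPM in MEK inhibitor libraries. MUC16 was lower in every invasive library, with log2 fold changes of -2.78 ± 0.42 and -2.85 ± 0.56 (adjusted p = 5.8e-05 and 0.0015). MUC20 had 2.15, 9.01, 2.04 and 5.42 CPM in invasive libraries, against 55.4, 43.9, 67.8 and 31.9 CPM in MEK inhibitor libraries. MUC20 was lower in every invasive library, with log2 fold changes of -3.23 ± 0.51 and -3.13 ± 0.57 (adjusted p = 9e-05 and 0.00057). MUC15 and MUC1 were lower in both fits, with log2 fold changes of -3.13 ± 0.52 and -2.98 ± 0.45 for MUC15 and -1.99 ± 0.58 and -1.80 ± 0.53 for MUC1. The MUC1 call was lost on leaving out any one of invasive replicate 3 and MEK inhibitor replicate 3 (adjusted p up to 0.078). LCN2, the siderophore-binding protein lipocalin 2, had 2.15, 114, 12.6 and 47.8 CPM in invasive libraries, against 1021, 545, 724 and 239 CPM in MEK inhibitor libraries. LCN2 was lower in every invasive library, with log2 fold changes of -3.71 ± 0.80 and -3.43 ± 1.03 (adjusted p = 0.0026 and 0.026). Its level varied widely in both groups. CEACAM1, an adhesion molecule, was the one member higher, at 38.6, 59.98, 62.3 and 53.9 CPM in invasive libraries, against 5.96, 4.29, 8.05 and 3.73 CPM in MEK inhibitor libraries. CEACAM1 was higher in every invasive library, with log2 fold changes of 3.30 ± 0.52 and 3.40 ± 0.51 (adjusted p = 9e-05 and 3.4e-05). Of 17 tested members of the NRF2 and detoxification list, 0 were higher and 2 lower with all libraries, and 1 and 4 without the shallow one, with all libraries near the 6.38% and 7.91% of all genes. With all libraries DESeq2 called 5 lower and relative log expression factors gave 4. The 2 lower in both fits are targets of the aryl hydrocarbon receptor. CYP1A1 (chr15:74719542-74725528) had 2.15, 8.08, 2.04 and 9.48 CPM in invasive libraries, against 225, 246, 404 and 199 CPM in MEK inhibitor libraries. CYP1A1 was lower in every invasive library, with log2 fold changes of -5.41 ± 0.43 and -5.31 ± 0.50 (adjusted p = 5.5e-09 and 8e-07). CYP1B1 had 90.2, 594, 459.8 and 800.3 CPM in invasive libraries, against 2007, 1923, 2200 and 1906 CPM in MEK inhibitor libraries. CYP1B1 was lower in every invasive library, with log2 fold changes of -2.03 ± 0.34 and -1.70 ± 0.20 (adjusted p = 0.00018 and 2.1e-07). NQO1, GCLC and GCLM were not called.

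Many lysosomal genes were lower. Of 23 tested members, 1 was higher and 10 lower with all libraries, and 2 and 13 without the shallow one, with a median log2 fold change of -0.85 with all libraries and -0.66 without the shallow one. CTSD, the protease cathepsin D, had 131, 197, 132 and 212 CPM in invasive libraries, against 548, 595, 852 and 559.6 CPM in MEK inhibitor libraries. CTSD was lower in every invasive library, with log2 fold changes of -1.92 ± 0.21 and -1.82 ± 0.20 (adjusted p = 5.2e-07 and 7.8e-08). CTSS, cathepsin S, had 0, 12.1, 7.73 and 19.6 CPM in invasive libraries, against 113, 95.6, 207 and 83.2 CPM in MEK inhibitor libraries. CTSS was lower in every deeper invasive library and at 0 in the shallow one, with log2 fold changes of -3.43 ± 0.56 and -3.23 ± 0.64 (adjusted p = 0.00014 and 0.0016). GRN, progranulin, had 81.6, 103, 86.3 and 93.1 CPM in invasive libraries, against 345, 261, 309 and 222 CPM in MEK inhibitor libraries. GRN was lower in every invasive library, with log2 fold changes of -1.63 ± 0.25 and -1.59 ± 0.24 (adjusted p = 5.6e-05 and 2e-05). PSAP, LAMP1, HEXA and CTSA were lower in both fits too, with log2 fold changes of -0.78 ± 0.17 and -0.76 ± 0.17 for PSAP, -0.89 ± 0.25 and -0.66 ± 0.18 for LAMP1, -1.23 ± 0.39 and -0.98 ± 0.28 for HEXA and -0.85 ± 0.22 and -0.86 ± 0.20 for CTSA. The LAMP1 call was lost on leaving out any one of MEK inhibitor replicates 1 and 2 (adjusted p up to 0.063). The HEXA call was lost on leaving out any one of invasive replicate 4 and MEK inhibitor replicates 1, 2 and 3 (adjusted p up to 0.11). NPC1, the lysosomal cholesterol exporter, was higher (log2 fold change 0.83 ± 0.26 and 0.98 ± 0.20, adjusted p = 0.033 and 0.00056), a call that was lost on leaving out any one of invasive replicates 2, 3 and 4 and MEK inhibitor replicates 1, 2, 3 and 4 (adjusted p up to 0.12). Of antigen presentation genes, B2M, the light chain of MHC class I, had 1134, 1439, 1312 and 1626 CPM in invasive libraries, against 2700, 2256, 3667 and 2175 CPM in MEK inhibitor libraries. B2M was lower in every invasive library, with log2 fold changes of -0.97 ± 0.26 and -0.89 ± 0.29 (adjusted p = 0.014 and 0.034). Its call was lost on leaving out MEK inhibitor replicate 3 (adjusted p up to 0.074). PSMB9, an immunoproteasome subunit, had 0, 17.1, 22 and 35.2 CPM in invasive libraries, against 69.8, 59.99, 197 and 86.1 CPM in MEK inhibitor libraries. PSMB9 was lower in every deeper invasive library and at 0 in the shallow one, with log2 fold changes of -2.32 ± 0.57 and -2.06 ± 0.58 (adjusted p = 0.0068 and 0.016). That call was lost on leaving out MEK inhibitor replicate 3 (adjusted p up to 0.054). Of 16 tested members of their list, 0 were higher and 3 lower with all libraries, and 0 and 3 without the shallow one. With all libraries 18.8% of the list was lower, against 7.91% of all genes. Without the shallow one 11.5% of all genes were lower. Of 21 tested members of the interferon response, edgeR called 0 in either fit, with 3 at an unadjusted p under 0.05 with all libraries and 1 without the shallow one. DESeq2 called 0 in either case, and limma-voom 0 and 1.

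The lowest log2 fold changes belonged to genes that were almost silent in invasive cells. EPHA7, an ephrin receptor, had 0, 0, 0 and 0 CPM in invasive libraries, against 20.1, 27.9, 42.8 and 39.6 CPM in MEK inhibitor libraries. With 0 counts in the invasive group, against 519 in the MEK inhibitor group, it was at least 98.8-fold lower against the floor of 3 counts over the group (adjusted p = 1.1e-07 and 7.6e-10 in the 2 fits). By the same bound PCDH9, a protocadherin, was at least 64.0-fold lower, ATP6V1B1, a proton pump subunit, at least 63.1-fold, ADAMTS5, a proteoglycan-cleaving protease, at least 34.9-fold and RBMS3, an RNA-binding protein, at least 33.8-fold, each at 0 in all 4 invasive libraries. In the MEK inhibitor libraries PCDH9 had 10.6, 14.7, 28 and 31.1 CPM and ATP6V1B1 28, 22.8, 19.2 and 13.2 CPM. FAT3, a giant cadherin, SLITRK5, a neuronal membrane protein, and COL12A1, a fibril-associated collagen, each had 1 count in the invasive group. MEK inhibitor over invasive ratios were 265 (exact 95% counting interval 47.4 to 10500) for FAT3, 233 (41.6 to 9220) for SLITRK5 and 233 (41.7 to 9240) for COL12A1, and all were called lower in both fits. Means in non-invasive cells were low too, at 0.108 CPM for EPHA7, 0 for ADAMTS5, 0.52 for COL12A1 and 0.94 for FAT3. They were 1.39 CPM for PCDH9, 1.53 for SLITRK5, 1.56 for RBMS3 and 3.44 for ATP6V1B1. Of these genes only ATP6V1B1 was called between invasive and non-invasive cells, lower in invasive (-6.57 ± 1.01, adjusted p = 0.0015 without the shallow library).

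**Figure D2:**
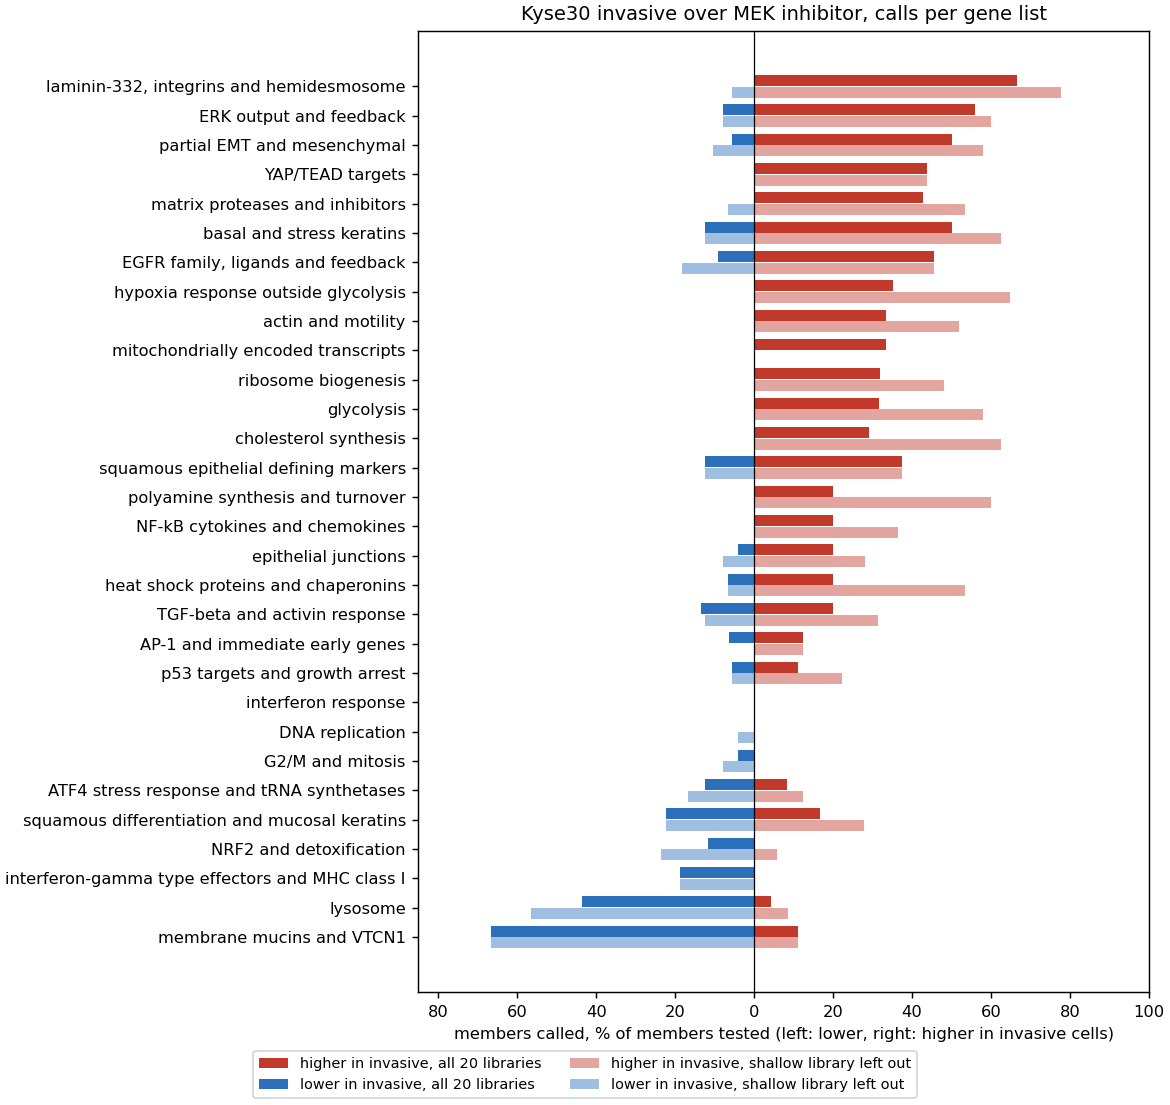
Share of tested members called higher (right, red) or lower (left, blue) in invasive cells than in MEK inhibitor spheroids, for each list with at least 8 tested members, with all 20 Kyse30 libraries (dark) and without the shallow one (pale). Laminin-332 and ERK output genes lead at the top with 66.7% and 56.0% of members higher. The lysosome list and the list of membrane mucins and VTCN1 stand at the bottom with 43.5% and 66.7% lower. Mitochondrially encoded genes have calls in edgeR with the shallow library and none without it.

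Metabolic lists leaned higher and gained calls when the shallow library was left out. All genes gained calls too, with the share called higher going from 6.38% to 11.8%. Of 17 tested members of the hypoxia response outside glycolysis, 6 with all libraries and 11 without the shallow one were called higher. Of 19 tested members of glycolysis, 6 with all libraries and 11 without the shallow one were called higher. In cholesterol synthesis 7 with all libraries and 15 without the shallow one were higher among 24 tested members, in polyamine metabolism 2 with all libraries and 6 without the shallow one among 10 tested members, and in ribosome biogenesis 8 with all libraries and 12 without the shallow one among 25 tested members. No member of these 5 lists was called lower by edgeR in either fit, while DESeq2 with all libraries called 1 hypoxia gene and 1 ribosome biogenesis gene lower. NDRG1, a hypoxia-induced gene, had 289.9, 609.5, 558 and 989 CPM in invasive libraries, against 60.3, 62.4, 40.8 and 75.9 CPM in MEK inhibitor libraries. NDRG1 was higher in every invasive library, with log2 fold changes of 3.36 ± 0.37 and 3.59 ± 0.38 (adjusted p = 7.4e-07 and 2.8e-06). BNIP3, which marks mitochondria for removal, had 98.8, 333, 270.2 and 416 CPM in invasive libraries, against 52.6, 68, 63.6 and 82.2 CPM in MEK inhibitor libraries. BNIP3 was higher in every invasive library, with log2 fold changes of 2.09 ± 0.39 and 2.35 ± 0.38 (adjusted p = 0.0006 and 0.00023). VEGFA, the angiogenic factor, had 168, 130.2, 129 and 110.4 CPM in invasive libraries, against 38.6, 41.5, 39.7 and 28.9 CPM in MEK inhibitor libraries. VEGFA was higher in every invasive library, with log2 fold changes of 1.84 ± 0.29 and 1.73 ± 0.25 (adjusted p = 8.3e-05 and 8e-06). ANGPTL4, a lipase inhibitor, had 0, 37.6, 64.7 and 77.9 CPM in invasive libraries, against 0.883, 1.34, 1.30 and 1.49 CPM in MEK inhibitor libraries. ANGPTL4 was above every MEK inhibitor library in the 3 deeper invasive libraries and not in the shallow one, with log2 fold changes of 5.20 ± 0.78 and 5.55 ± 0.54 (adjusted p = 5e-05 and 1.4e-08). The shallow library held no read of it. Of glycolytic enzymes, LDHA had 414, 1334, 1251 and 1756 CPM in invasive libraries, against 469.7, 436, 409 and 409 CPM in MEK inhibitor libraries. LDHA was above every MEK inhibitor library in the 3 deeper invasive libraries and not in the shallow one, with log2 fold changes of 1.47 ± 0.34 and 1.75 ± 0.30 (adjusted p = 0.004 and 0.00023). PKM, the pyruvate kinase gene, had 945, 998, 927 and 1092 CPM in invasive libraries, against 340.1, 370.1, 302 and 350.3 CPM in MEK inhibitor libraries. PKM was higher in every invasive library, with log2 fold changes of 1.54 ± 0.20 and 1.56 ± 0.19 (adjusted p = 7e-06 and 4e-07). PGK1 had 77.3, 727, 614 and 887 CPM in invasive libraries, against 177, 228, 233 and 246 CPM in MEK inhibitor libraries. PGK1 was above every MEK inhibitor library in the 3 deeper invasive libraries and not in the shallow one, with log2 fold changes of 1.40 ± 0.39 and 1.75 ± 0.21 (adjusted p = 0.015 and 5.6e-07). The shallow library was below all others, and the PGK1 call was lost on leaving out any one of invasive replicate 4 and MEK inhibitor replicates 1, 2 and 3 (adjusted p up to 0.071).

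In the cholesterol pathway the synthase HMGCS1 had 384, 334, 331.7 and 512 CPM in invasive libraries, against 97.6, 145, 128 and 152 CPM in MEK inhibitor libraries. HMGCS1 was higher in every invasive library, with log2 fold changes of 1.58 ± 0.31 and 1.59 ± 0.34 (adjusted p = 0.00083 and 0.0022). ODC1, the first enzyme of polyamine synthesis, had 81.6, 181, 303 and 169.7 CPM in invasive libraries, against 59.6, 66.4, 46.7 and 71.5 CPM in MEK inhibitor libraries. ODC1 was higher in every invasive library, with log2 fold changes of 1.61 ± 0.34 and 1.83 ± 0.28 (adjusted p = 0.0017 and 2.3e-05). SMOX, which oxidises spermine, had 100.9, 23.3, 25.6 and 21.7 CPM in invasive libraries, against 7.95, 5.36, 4.41 and 1.99 CPM in MEK inhibitor libraries. SMOX was higher in every invasive library, with log2 fold changes of 2.98 ± 0.51 and 2.24 ± 0.38 (adjusted p = 0.00022 and 7.2e-05). NOP56, a component of the snoRNA particles that modify ribosomal RNA, had 492, 402, 419.6 and 355 CPM in invasive libraries, against 130.3, 125, 139 and 125 CPM in MEK inhibitor libraries. NOP56 was higher in every invasive library, with log2 fold changes of 1.68 ± 0.22 and 1.59 ± 0.20 (adjusted p = 9.6e-06 and 9.2e-07). BOP1, a pre-ribosome factor, had 45.1, 65.3, 63.5 and 75.9 CPM in invasive libraries, against 17.9, 24.1, 20.5 and 27.4 CPM in MEK inhibitor libraries. BOP1 was higher in every invasive library, with log2 fold changes of 1.50 ± 0.30 and 1.60 ± 0.24 (adjusted p = 0.0011 and 1.1e-05).

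Of 15 tested members of the heat shock response, 3 were higher and 1 lower with all libraries, and 8 and 1 without the shallow one. The shares of all genes were 6.38% and 7.91% with all libraries and 11.8% and 11.5% without the shallow one. HSP90AB1, a chaperone, had 2587, 4299, 5277 and 4727 CPM in invasive libraries, against 2621, 2555, 2552 and 2427 CPM in MEK inhibitor libraries. HSP90AB1 was above every MEK inhibitor library in the 3 deeper invasive libraries and not in the shallow one, with log2 fold changes of 0.73 ± 0.19 and 0.91 ± 0.15 (adjusted p = 0.0086 and 5.4e-05). HSPA8, a constitutive chaperone, had 49.4, 438, 454 and 449 CPM in invasive libraries, against 102, 181, 162 and 167 CPM in MEK inhibitor libraries. HSPA8 was above every MEK inhibitor library in the 3 deeper invasive libraries and not in the shallow one, with log2 fold changes of 1.20 ± 0.38 and 1.55 ± 0.21 (adjusted p = 0.032 and 3.5e-06). The HSPA8 call was lost on leaving out any one of invasive replicates 2, 3 and 4 and MEK inhibitor replicates 1, 2, 3 and 4 (adjusted p up to 0.13). HSPB1, a small heat shock protein, was lower, at 219, 190.2, 158 and 203 CPM in invasive libraries, against 445, 376, 391 and 272 CPM in MEK inhibitor libraries. HSPB1 was lower in every invasive library, with log2 fold changes of -0.95 ± 0.20 and -1.01 ± 0.20 (adjusted p = 0.0022 and 0.00031).

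Few cell cycle genes were called. Among all genes 6.38% were higher and 7.91% lower with all libraries, and 11.8% and 11.5% without the shallow one. At these shares few calls would be met among 25 genes in any case. Of 25 tested members of DNA replication, 0 were higher and 0 lower with all libraries, and 0 and 1 without the shallow one. Of 25 tested members of G2/M and mitosis, 0 were higher and 1 lower with all libraries, and 0 and 2 without the shallow one. At an unadjusted p under 0.05, 0 replication genes were higher and 2 lower with all libraries. DESeq2 called 4 of them lower and limma-voom 0. With all libraries 18 of the 25 replication genes and 19 of the 25 mitotic genes had a negative fold change, and without the shallow library 14 and 18 did. MKI67, the proliferation marker Ki-67, had 180.4, 208, 221 and 193 CPM in invasive libraries, against 199, 254, 201 and 212 CPM in MEK inhibitor libraries. MKI67 overlapped between the groups, with log2 fold changes of -0.10 ± 0.27 and -0.06 ± 0.26 (adjusted p = 0.84 and 0.91). CENPF, a kinetochore protein, was called lower (log2 fold change -1.08 ± 0.31 and -0.80 ± 0.22, adjusted p = 0.021 and 0.0078), which was lost on leaving out any one of MEK inhibitor replicates 2 and 4 (adjusted p up to 0.073). Of 18 tested members of the p53 and growth arrest list, 2 were higher and 1 lower with all libraries, and 4 and 1 without the shallow one, against 6.38% and 7.91% of all genes with all libraries and 11.8% and 11.5% without the shallow one. With all libraries these shares of the list are near those of all genes. PLK3, a stress-responsive kinase, had 187, 104, 134 and 158 CPM in invasive libraries, against 47, 56, 22.1 and 14.2 CPM in MEK inhibitor libraries. PLK3 was higher in every invasive library, with log2 fold changes of 2.05 ± 0.38 and 1.92 ± 0.41 (adjusted p = 0.00054 and 0.0025). The cell cycle inhibitor CDKN1A had 234, 396, 498 and 489 CPM in invasive libraries, against 243, 258, 49.6 and 61.5 CPM in MEK inhibitor libraries. CDKN1A was above every MEK inhibitor library in the 3 deeper invasive libraries and not in the shallow one, with log2 fold changes of 1.41 ± 0.44 and 1.59 ± 0.55 (adjusted p = 0.033 and 0.049). For both, MEK inhibitor replicates 3 and 4 were the lowest. The CDKN1A call was lost on leaving out any one of invasive replicates 3 and 4 and MEK inhibitor replicates 3 and 4 (adjusted p up to 0.13). Of 15 tested members of the TGF-beta and activin list, 3 were higher and 2 lower with all libraries. Without the shallow one 5 and 2 of 16 were. With all libraries this is 20% and 13.3%, against 6.38% and 7.91% of all genes. The shares of all genes without the shallow one were 11.8% and 11.5%. ID3, an inhibitor of differentiation factors, had 0, 21.4, 50.5 and 62.3 CPM in invasive libraries, against 164, 196, 96 and 156 CPM in MEK inhibitor libraries. ID3 was lower in every deeper invasive library and at 0 in the shallow one, with log2 fold changes of -2.06 ± 0.49 and -1.78 ± 0.46 (adjusted p = 0.0056 and 0.009). TGFB1 had 92.3, 4.35, 13.4 and 8.13 CPM in invasive libraries, against 3.09, 2.68, 5.97 and 2.49 CPM in MEK inhibitor libraries. TGFB1 overlapped between the groups, with log2 fold changes of 2.83 ± 0.73 and 1.26 ± 0.54 (adjusted p = 0.0092 and 0.096). It was called only with the shallow library, its highest. Of 10 tested members of the NF-kB list, 2 were higher and 0 lower with all libraries, namely IL1RL1 and IL1A. Without the shallow one 4 and 0 of 11 were, again with IL1RL1 and IL1A. The shares of all genes called higher were 6.38% and 11.8%. IL1A, an interleukin-1 cytokine, had 0, 15.8, 74.1 and 35.6 CPM in invasive libraries, against 3.53, 14.2, 6.49 and 2.99 CPM in MEK inhibitor libraries. IL1A was above every MEK inhibitor library in the 3 deeper invasive libraries and not in the shallow one, with log2 fold changes of 2.29 ± 0.74 and 2.62 ± 0.65 (adjusted p = 0.039 and 0.0053). The IL1A call was lost on leaving out any one of invasive replicates 3 and 4 and MEK inhibitor replicates 1, 3 and 4 (adjusted p up to 0.23). Of 24 tested members of the ATF4 and tRNA synthetase list, 2 were higher and 3 lower with all libraries, and 3 and 4 without the shallow one, near the shares of all genes (6.38% and 7.91% with all libraries, 11.8% and 11.5% without the shallow one).

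In edgeR, mitochondrially encoded RNAs were called with the shallow library and not without it. Of 15 tested members encoded by mitochondrial DNA, 5 were higher and 0 lower with all libraries, and 0 and 0 without the shallow one. DESeq2 called 4 higher with all libraries and 2 without the shallow one, and limma-voom 3 and 0. MT-ND2, a complex I subunit, had 9270, 4978, 5031 and 4735 CPM in invasive libraries, against 2273, 3038, 2418 and 2779 CPM in MEK inhibitor libraries. MT-ND2 was higher in every invasive library, with log2 fold changes of 1.19 ± 0.32 and 0.90 ± 0.35 (adjusted p = 0.012 and 0.071). The MT-ND2 call was lost on leaving out any one of invasive replicate 1 and MEK inhibitor replicates 1 and 3 (adjusted p up to 0.071). MALAT1 stayed higher in both fits, at 81350, 35870, 26090 and 21870 CPM in invasive libraries, against 7286, 9495, 7829 and 10310 CPM in MEK inhibitor libraries. MALAT1 was higher in every invasive library, with log2 fold changes of 2.24 ± 0.45 and 1.68 ± 0.50 (adjusted p = 0.0012 and 0.025). NEAT1 had 8282, 1749, 1295 and 1187 CPM in invasive libraries, against 782, 718, 915 and 913 CPM in MEK inhibitor libraries. NEAT1 was higher in every invasive library, with log2 fold changes of 1.91 ± 0.57 and 0.76 ± 0.55 (adjusted p = 0.025 and 0.36). It was called only with the shallow library. The NEAT1 call was lost on leaving out any one of invasive replicate 1 and MEK inhibitor replicates 1, 2, 3 and 4 (adjusted p up to 0.36). Whether RNA quality had a part in other results was not tested. With mitochondrial transcripts, MALAT1 and NEAT1 left out, 708 genes were higher and 950 lower.

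**Figure D3:**
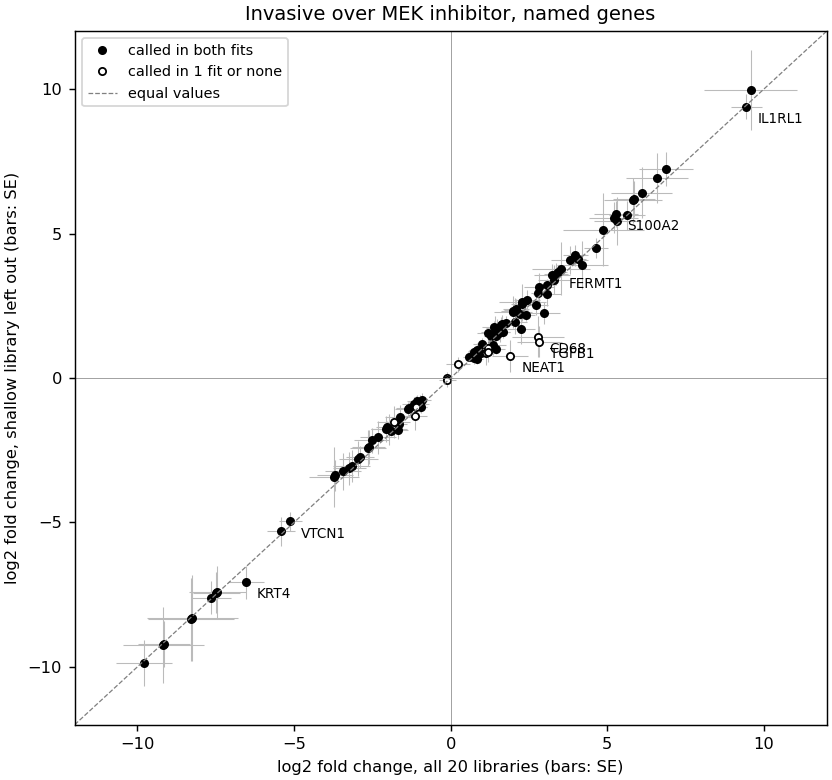
Log2 fold change of the named genes, invasive over MEK inhibitor, with all 20 Kyse30 libraries (horizontal) and without the shallow library (vertical), with SE bars; filled points were called in both fits. Most genes lie along the dashed line of equal values, and TGFB1, CD68 and NEAT1 lie well below it.

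The other Kyse30 groups show where the levels of these genes lay. In non-invasive replicates 1 and 3, mitochondrial transcripts took 17.4% and 19.25% of counts and MALAT1 6.27% and 9.63%. In replicates 2 and 4 these were 8.22% and 8.95%, and 1.68% and 1.91%. Whether RNA quality had a part in the comparisons with non-invasive cells was not tested. Comparisons that follow share libraries with that of invasive and MEK inhibitor spheroids, so they are set side by side and not counted against each other. Fold changes are given without the shallow library, and means over all 4 libraries of a group. With the shallow library in the fit, 4.56% of genes differed between non-invasive cells and MEK inhibitor spheroids and 0.409% between invasive and non-invasive cells. Without it, non-invasive cells, from the same kind of EGF spheroid without the drug, differed from the MEK inhibitor spheroids in 1738 of 12072 genes (14.4%), 1033 higher (8.56%) and 705 lower (5.84%). Invasive cells differed from non-invasive cells in 253 genes (2.1%), 88 higher (0.729%) and 165 lower (1.37%). DUSP6 averaged 121 ± 65.6 CPM in invasive, 92.1 ± 11.4 CPM in non-invasive, 118 ± 70.7 CPM in cetuximab, 22.9 ± 7.53 CPM in MEK inhibitor and 47.7 ± 9.49 CPM in serum-free libraries (mean ± SD, n = 4 each). On the log2 scale non-invasive cells were above MEK inhibitor spheroids (2.01 ± 0.35, adjusted p = 0.0007), and invasive cells were not called different from non-invasive cells (0.68 ± 0.35, adjusted p = 0.35). HBEGF averaged 246 ± 69 CPM in invasive, 95.7 ± 35.6 CPM in non-invasive, 21.4 ± 4.68 CPM in cetuximab, 9.76 ± 4.22 CPM in MEK inhibitor and 11.4 ± 6.0 CPM in serum-free libraries. It was higher in non-invasive cells than in MEK inhibitor spheroids (3.28 ± 0.33, adjusted p = 3e-07) and higher again in invasive than in non-invasive cells (1.20 ± 0.31, adjusted p = 0.041), a call that is not made with the shallow library in the fit (1.35 ± 0.34, adjusted p = 0.075). FERMT1 averaged 652 ± 370.4 CPM in invasive, 142 ± 11 CPM in non-invasive, 98 ± 18.1 CPM in cetuximab, 60.6 ± 11.7 CPM in MEK inhibitor and 55.2 ± 4.26 CPM in serum-free libraries. It was higher in non-invasive cells than in MEK inhibitor spheroids (1.23 ± 0.20, adjusted p = 9.2e-05) and higher again in invasive than in non-invasive cells (2.44 ± 0.21, adjusted p = 5e-08). IL1RL1 averaged 283 ± 35 CPM in invasive, 104 ± 8.54 CPM in non-invasive, 16.5 ± 8.73 CPM in cetuximab, 0.360 ± 0.202 CPM in MEK inhibitor and 0.0916 ± 0.183 CPM in serum-free libraries. It too was higher in non-invasive cells than in MEK inhibitor spheroids (8.0 ± 0.43, adjusted p = 7.4e-13) and in invasive than in non-invasive cells (1.38 ± 0.26, adjusted p = 0.004). ODC1 was not called in non-invasive cells against MEK inhibitor spheroids (0.13 ± 0.26, adjusted p = 0.79) and was higher in invasive than non-invasive cells (1.70 ± 0.28, adjusted p = 0.0028).

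Among genes lower in invasive cells the groups ranked differently. VTCN1 averaged 9.40 ± 7.17 CPM in invasive, 66.6 ± 18.6 CPM in non-invasive, 76 ± 11.7 CPM in cetuximab, 378 ± 115 CPM in MEK inhibitor and 100.8 ± 19 CPM in serum-free libraries. It was lower in non-invasive cells than in MEK inhibitor spheroids (-2.51 ± 0.25, adjusted p = 2.3e-07) and lower again in invasive than in non-invasive cells (-2.46 ± 0.32, adjusted p = 0.00023). MUC20 was not called in non-invasive cells against MEK inhibitor spheroids (-0.06 ± 0.42, adjusted p = 0.95) and was lower in invasive than non-invasive cells (-3.07 ± 0.57, adjusted p = 0.0091). CYP1A1 averaged 5.44 ± 3.90 CPM in invasive, 19.4 ± 9.56 CPM in non-invasive, 89.6 ± 37.8 CPM in cetuximab, 268 ± 92.3 CPM in MEK inhibitor and 1168 ± 50.1 CPM in serum-free libraries, so the serum-free spheroids were the highest. KRT13 averaged 68.8 ± 64.6 CPM in invasive, 217 ± 182 CPM in non-invasive, 602 ± 141 CPM in cetuximab, 949 ± 114 CPM in MEK inhibitor and 1168 ± 77 CPM in serum-free libraries, again highest in the serum-free spheroids. Non-invasive replicate 1 held 488.8 CPM of KRT13, against 126.5, 102.4 and 151.5 CPM in replicates 2, 3 and 4. CTSD averaged 168 ± 42.5 CPM in invasive, 330 ± 39.5 CPM in non-invasive, 913 ± 200 CPM in cetuximab, 639 ± 144 CPM in MEK inhibitor and 837 ± 61.5 CPM in serum-free libraries. SPRY1 averaged 4.13 ± 3.43 CPM in invasive, 8.41 ± 1.64 CPM in non-invasive, 75.9 ± 16.4 CPM in cetuximab, 37.5 ± 20.4 CPM in MEK inhibitor and 79.8 ± 9.14 CPM in serum-free libraries. The highest mean of CTSD was in cetuximab libraries and that of SPRY1 in serum-free libraries. B2M averaged 1378 ± 208 CPM in invasive, 1563 ± 912 CPM in non-invasive, 797 ± 155 CPM in cetuximab, 2699 ± 685 CPM in MEK inhibitor and 1141 ± 146 CPM in serum-free libraries. Its non-invasive replicate 1 stood at 2916 CPM, against 1301, 994.2 and 1042 CPM in replicates 2, 3 and 4. By list, the median log2 fold change of ERK output genes was 0.89 for non-invasive over MEK inhibitor and 0.50 for invasive over non-invasive. For the laminin and integrin list the medians were 1.28 and 0.33, and for the mucin list -0.18 and -2.22. In DNA replication, 3 of 25 genes were lower in non-invasive cells than in MEK inhibitor spheroids with the shallow library in the fit (1.65% of all genes) and 14 without it (5.84% of all genes).

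**Figure D4:**
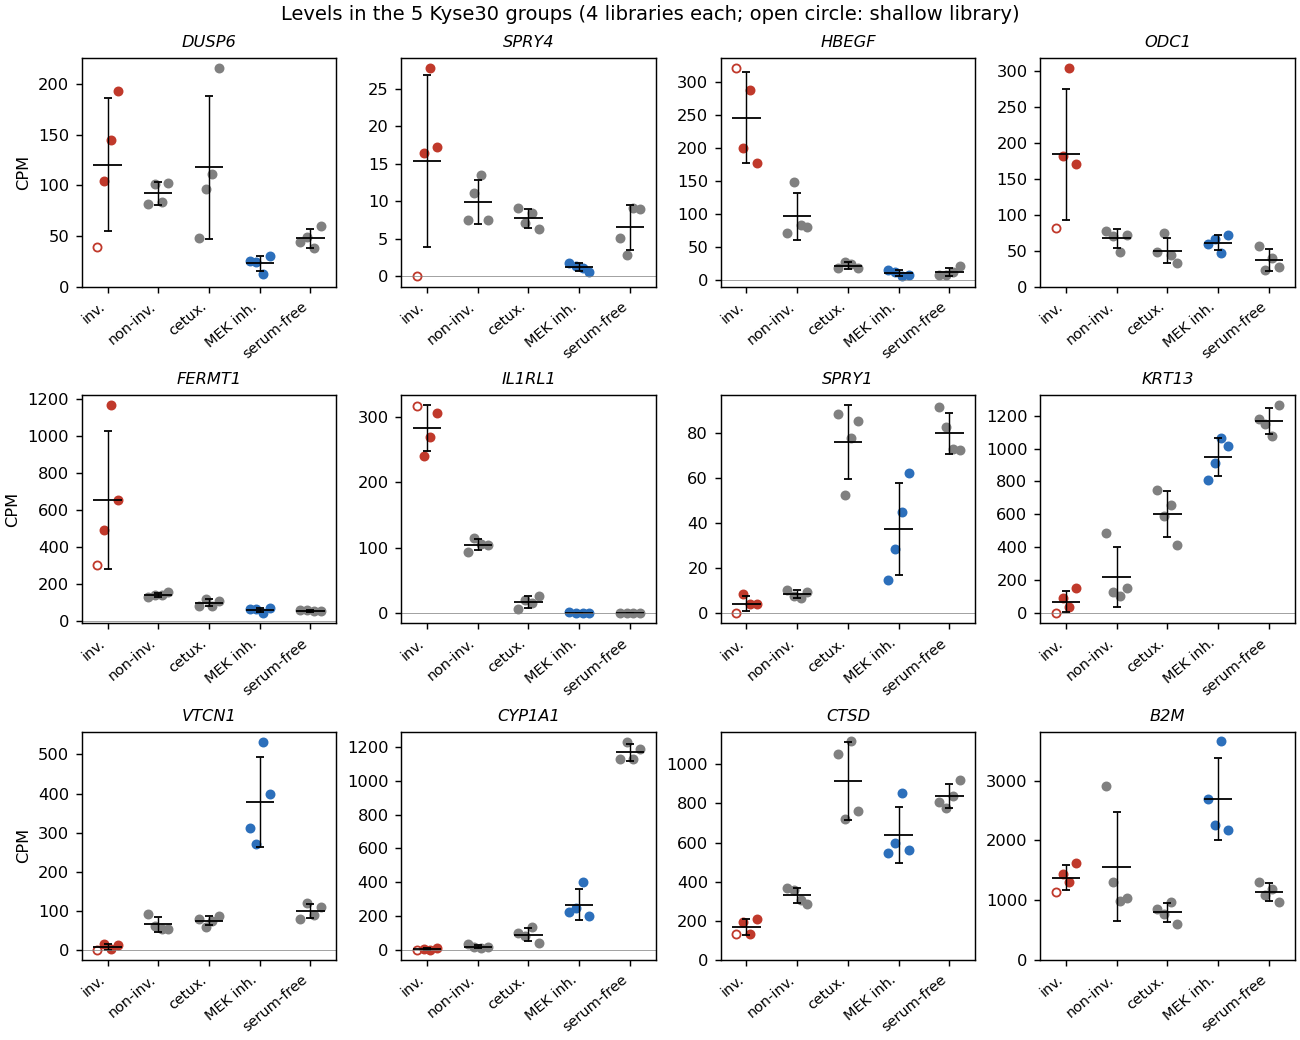
Levels of 12 genes in the 5 Kyse30 groups, in CPM, with 4 libraries a group and mean and SD bars; invasive libraries are red, MEK inhibitor libraries blue and the shallow library an open circle. DUSP6, SPRY4, HBEGF and IL1RL1 are low in MEK inhibitor spheroids and above that in non-invasive cells, FERMT1 and ODC1 are highest in invasive cells, and CYP1A1 and KRT13 are highest in serum-free spheroids.

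The same pair of groups in FaDu gave 2396 higher (19.8%) and 2654 lower (21.9%) genes of 12131 tested, together 41.6%. Of the Kyse30 genes called higher with all libraries, 467 were also called higher in FaDu, which is 61.1% of the Kyse30 and 19.5% of the FaDu list, and 30 were called lower there. Of the lower genes 530 were shared, 56.0% and 20% of the lists, and 29 were called higher in FaDu. Without the shallow library 836 higher genes (58.7% and 34.9%) and 730 lower genes (52.4% and 27.5%) were shared. The difference between the lines, the Kyse30 log2 fold change minus that of FaDu, was tested in 1 fit over all 40 libraries. It was called for 922 of 12652 genes (7.29%), 508 higher in Kyse30 (4.02%) and 414 lower (3.27%), and for 1429 genes (11.3%) without the shallow library. Of 25 ERK output genes tested, 7 had a lower and none a higher change than in FaDu with all libraries, and 7 and 1 without the shallow one. DUSP6 averaged 398 ± 133 CPM in invasive and 9.68 ± 3.91 CPM in MEK inhibitor FaDu libraries (mean ± SD, n = 4 each), a log2 fold change of 5.31 ± 0.33. The difference between lines was -2.89 ± 0.52, adjusted p = 0.00021, and -2.66 ± 0.52, adjusted p = 0.00066, without the shallow library. For PHLDA1 the FaDu fold change was 4.15 ± 0.23 and the difference -2.42 ± 0.35, adjusted p = 4.9e-06, and -2.29 ± 0.34, adjusted p = 1.2e-05, without the shallow library. ETV4 rose in FaDu (4.20 ± 0.38) and was not called in Kyse30, a difference of -3.95 ± 0.58, adjusted p = 7.6e-06, and -3.75 ± 0.48, adjusted p = 1.8e-07, without the shallow library. TFPI2 went in opposite directions, with a FaDu fold change of 3.35 ± 0.20 and a difference of -5.95 ± 0.60, adjusted p = 3.5e-09, and -5.81 ± 0.63, adjusted p = 7.3e-08, without the shallow library.

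Many genes of hypoxia and glycolysis had a higher log2 fold change in Kyse30 than in FaDu. Some, such as NDRG1, BNIP3 and PGK1, were called in opposite directions. Others were not, such as PKM, whose FaDu fold change was 0.17 ± 0.15 and not called. In FaDu 13 of 17 hypoxia genes and 9 of 20 glycolysis genes were lower in invasive cells and none of either was higher. The difference between lines was called, always with the larger value in Kyse30, for 10 of 17 and 10 of 20 with all libraries and 12 and 13 without the shallow one, against 4.02% and 5.85% of all genes. NDRG1 averaged 574 ± 141 CPM in invasive and 1697 ± 609 CPM in MEK inhibitor FaDu libraries, a fold change of -1.56 ± 0.29, and the difference was 4.91 ± 0.49, adjusted p = 3.6e-09, and 5.11 ± 0.50, adjusted p = 1.5e-08, without the shallow library. BNIP3 had a FaDu fold change of -1.58 ± 0.28 and a difference of 3.67 ± 0.52, adjusted p = 4.5e-06, and 3.91 ± 0.51, adjusted p = 1.9e-06, without the shallow library. For PGK1 the FaDu fold change was -0.88 ± 0.19 and the difference 2.28 ± 0.47, adjusted p = 0.0014, and 2.59 ± 0.30, adjusted p = 3.6e-08, without the shallow library. FERMT1 rose in both lines and more in Kyse30 (FaDu 1.69 ± 0.14, difference 1.73 ± 0.32, adjusted p = 0.00037, and 1.94 ± 0.25, adjusted p = 3.8e-07, without the shallow library), and ITGA2 rose in both and less in Kyse30 (FaDu 3.80 ± 0.23, difference -1.04 ± 0.32, adjusted p = 0.035, and -0.90 ± 0.29, adjusted p = 0.034, without the shallow library). All 21 interferon response genes called in FaDu, of 23 tested, were lower in invasive cells, whereas none was called in Kyse30, and the difference between lines was called for 8. In DNA replication 20 of 25 genes were higher in invasive FaDu cells and none in Kyse30, with a called difference for 9.

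**Figure D5:**
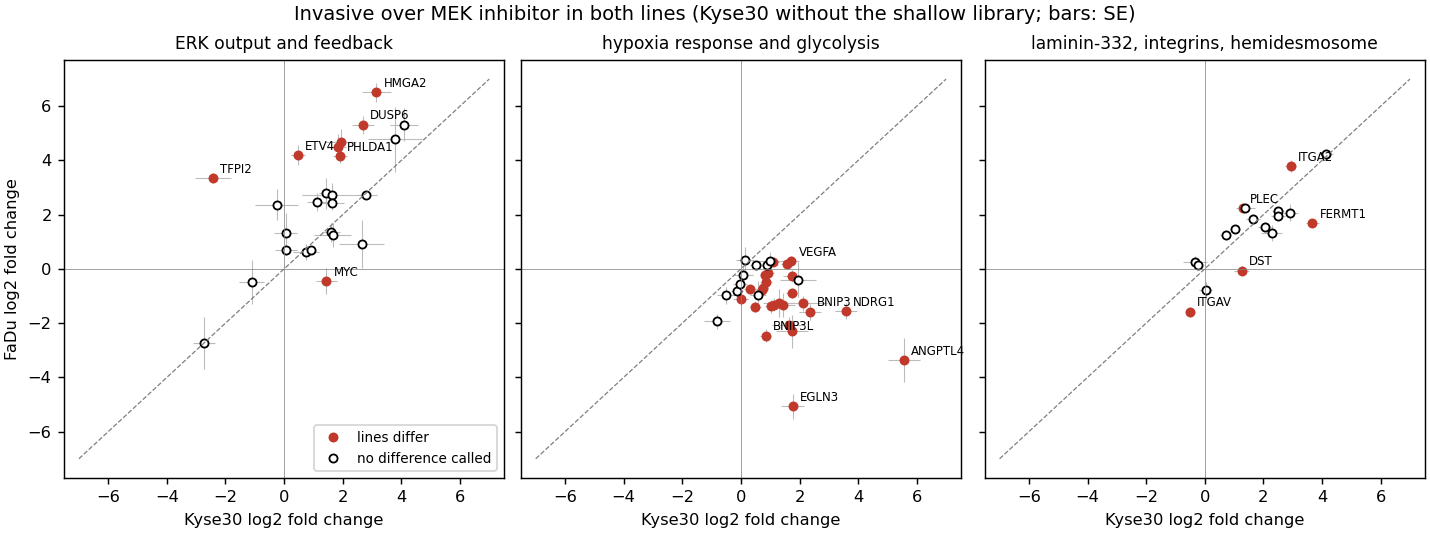
Log2 fold change, invasive over MEK inhibitor, in Kyse30 without the shallow library (horizontal) and FaDu (vertical) for 3 gene groups, with SE bars and the dashed line marking equal values; red points are genes whose fold change differed between lines at adjusted p under 0.05. Hypoxia and glycolysis genes lie mostly right of 0 and below it, with NDRG1 at 3.59 in Kyse30 and -1.56 in FaDu.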

How the data were processed

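RNA of sorted or pooled spheroid cells was made into 3′ tag libraries with a QuantSeq 3′ kit, per the labels' protocols, and the authors deposited 1 table of raw read counts per gene for 40 libraries. Reads were aligned to GRCh38 with STAR and counted with HTSeq, per the submitters' processing notes. Tool versions, the annotation and the strand of counting remain not given in the sources used here, and reads of antisense or overlapping partners cannot be told apart. The table lists 12655 genes, and 0 columns lacked a sample.

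Counts were tested in R 4.3.3 with edgeR 4.0.16 (TMM factors, filterByExpr with a minimum count of 10, quasi-likelihood F test, Benjamini-Hochberg adjusted p under 0.05), with the 5 Kyse30 groups in 1 fit and no covariate. The difference between lines came from 1 fit over the 10 groups of both. CPM use TMM factors per line. The SE is the fold change divided by the square root of F. The method was tested on simulated data. Alternatives were DESeq2 1.42.0, limma 3.58.1, other scaling and filters, a replicate block, single libraries left out, and, chosen after seeing the data, combinations without the shallow library. Tables and plots used Python 3.11.15, scipy 1.17.1 and matplotlib 3.10.9.

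The members, gene lists and tests were chosen with earlier results of these data known. The genes named were the 8 protein-coding genes with the highest and the 8 with the lowest log2 fold change among those called in both fits at or over 10 CPM in the higher group, up to 3 called members per list and direction with the largest change, and 22 genes kept whatever their values. Further members were named after their values were seen, and some genes are not reported here. Symbols of 12549 genes matched the RefSeq table.

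Depth was 463124 counts in the shallow library and 2312126 to 5669262 in the other 39. No molecular identifiers are named, so counting intervals and floors of 3 counts cover counting error only.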

Additional observations from a re-analysis of the deposited data

Results flagged for a closer look

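In 22 of 238 groups of 4 values examined, for the named genes and the library measures, 1 library stood apart from the other 3 by a gap too large for the group's range (Dixon's test at its 95% level). For normally distributed values chance gives about 1 in 20 such groups. That rate does not hold for genes near 0. A group with 1 value above 0 and 3 at 0 is always flagged, as for COL12A1, FAT3, SLITRK5, MMP10 and SERPINB2. A group at 0 throughout never is. Of the 22, 13 belong to the shallow invasive library.

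The shallow library had 5281 detected genes and 26.6% mitochondrial transcripts. Its level was 53.7 CPM for CD68, 743 CPM for FLNA, 12830 CPM for MT-ATP8, 9270 CPM for MT-ND2, 8282 CPM for NEAT1, 232 CPM for NOP16, 100.9 CPM for SMOX and 92.3 CPM for TGFB1, each the highest of the invasive libraries. It was the lowest for F3, at 131 CPM, for HSPA8, at 49.4 CPM, and for ETV4, at 0. MT-ATP8 shares its position with MT-ATP6, and reads of these 2 genes cannot be told apart. In invasive replicate 2, COL12A1, FAT3 and SLITRK5 each stood at 0.311 CPM, which is 1 read, against 0 in the other invasive libraries.

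Among the MEK inhibitor libraries, replicate 1 had the most counts, 4072449, and IL1RL1 at 0.662 CPM. Replicate 2 had SERPINB2 at 0.804 CPM, replicate 3 had BTC at 28.8 CPM and CTSD at 852 CPM, and replicate 4 had MMP10 at 0.498 CPM, each of these the highest of its group.

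Of the 115 named genes, 34 had a fold change that differed between the cell lines at an adjusted p under 0.05 (edgeR's quasi-likelihood interaction test over all 40 libraries). The Kyse30 log2 fold change minus that of FaDu was above 0 for 22 of them, at 8.56 for ANGPTL4, 6.41 for GBP2, 4.91 for NDRG1, 4.82 for KRT17, 3.67 for BNIP3, 3.04 for S100A2, 2.74 for DDIT4, 2.59 for NEAT1, 2.48 for MALAT1, 2.37 for CSTB, 2.32 for DSC2, 2.28 for PGK1, 1.75 for MSMO1, 1.73 for FERMT1, 1.73 for LDHA, 1.56 for HMGCS1, 1.50 for HSPB1, 1.48 for FLNA, 1.47 for FOSL2, 1.34 for PKM, 1.31 for DSP and 0.77 for EGFR. It was below 0 for 12, at -9.86 for PCDH9, -9.67 for COL12A1, -5.95 for TFPI2, -3.95 for ETV4, -3.81 for FST, -3.68 for HMGA2, -3.31 for FN1, -2.89 for DUSP6, -2.42 for PHLDA1, -1.96 for ODC1, -1.90 for TGFA and -1.04 for ITGA2. Without the shallow library the NEAT1 difference was 1.53 and not called (adjusted p = 0.172). COL12A1 and PCDH9 have 1 and 0 counts in the invasive Kyse30 group, so their fitted differences depend on the prior count and are no bounds. A named gene without a call here is not shown to behave alike in both lines.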

How the results depend on the processing

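Higher and lower calls numbered 764 and 947. Leaving out single libraries gave 440 to 1425 higher and 651 to 1394 lower genes, the highest of each without the shallow library and the lowest without MEK inhibitor replicate 3. Fitting the 8 libraries alone gave 284 and 315, all 40 libraries 1189 and 1629, limma-voom with quality weights 1958 and 1874 and DESeq2 903 and 1934. Relative log expression factors gave 644 and 1292, limma-voom 705 and 1043, no filter 761 and 942, a stricter filter 725 and 899.

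Without the shallow library (alternatives chosen after seeing the data), the 7 remaining libraries alone gave 2044 and 1808, DESeq2 1563 and 1593 and limma-voom 1491 and 1149. Leaving out 1 more library gave 1009 to 1247 higher genes, 1247, 1241 and 1199 without MEK inhibitor replicate 1, replicate 2 and invasive replicate 2, and 892 to 1248 lower genes. The cause of these shifts was not tested. Relative to edgeR with all libraries, limma-voom moved the median of all genes by -0.22 and leaving out the shallow library by 0.10.

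The replicate block gave 622 and 839, and 1351 and 1302 without the shallow library. Same-numbered libraries correlated at -0.03, 0.06, -0.07 and -0.07, and differently numbered ones at -0.091 to 0.096. With so few libraries a group, these values cannot tell whether equal numbers mark a shared culture or run. Under the block 9 of the 115 named genes lost their call. In the 8 compared libraries alone 34 lost it and 72 kept their side of the threshold, and leaving out single libraries lost 5 to 27.

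For the difference between lines, 508 and 414 genes were called, 413 to 740 and 316 to 689 on leaving out single libraries, 167 and 103 in the compared groups alone, 910 and 806 with DESeq2, 1250 and 1102 with quality weights and 434 and 357 with the block.

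ETV4 turned to -0.11 with limma-voom. EGFR, near 0, turned to 0.013 with quality weights, ranged from -0.21 to 0.019 on leaving out single libraries, 0.0192 of these without MEK inhibitor replicate 3 and 0.0091 without the shallow library. Without that library it was 0.016 in the compared groups alone, 0.010 with DESeq2, 0.034 with limma-voom, and 0.0011, 0.16, 0.0017 and 0.040 without MEK inhibitor replicates 2 and 3 and invasive replicates 3 and 4. MKI67 turned to 0.024 there without MEK inhibitor replicate 2.

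With 4 libraries a group and 463124 counts in one of them, genes of low level could not be told from 0 in that library. Sorting and drug differ together between the groups, and no label says that libraries are separate cultures.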
